A study of Mus musculus with 17 samples.

Results

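Gene expression was compared between 4 Myc CNS tumors and 3 SHH CNS tumors of mice, which are 7 of the 17 libraries of the series. The libraries were taken by their titles, Myc tumors 1 to 4 and SHH tumors 1 to 3, and every gene of the deposited count tables was examined. All 7 tumors came from the strain C57BL/6J and carried the genotype SMARCB1 -/-, so loss of Smarcb1 was shared by both groups and their labels differed in the subtype. The 3 wild-type C57BL/6J brain libraries are given as a background level. The 4 extracranial tumors and 3 syngeneic grafts entered the choice of genes tested, the scaling and the estimate of the spread between libraries. The brain libraries entered these steps too. RNA was polyadenylated RNA of whole tissue, and the design text counts each tumor library as a separate tumor. The age and sex of the mice, the driver of the Smarcb1 deletion and the way in which a tumor was assigned to a subtype are not stated in the labels. The p-values therefore set the difference against the spread within groups, estimated over all 17 libraries, and measure no more. If levels of Myc or Hedgehog genes were used in that assignment, the p-values of such genes describe that choice. In bulk tissue, fewer cells of a type and less RNA per cell cannot be told apart.

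Smarcb1 encodes a subunit of SWI/SNF complexes, remodelers of chromatin that move nucleosomes at enhancers and promoters. Its loss defines rhabdoid tumors, aggressive tumors of infancy that arise in the brain, where they are called atypical teratoid rhabdoid tumors, and in kidney and soft tissue. Human brain rhabdoid tumors fall into molecular subgroups, among them an SHH group with genes of Sonic hedgehog and Notch signaling and of neural progenitors, and a MYC group with high MYC and HOXC genes and more immune cells. The Hedgehog pathway acts through the receptor Ptch1, the transducer Smo and the Gli transcription factors at the primary cilium, and Myc is a transcription factor that drives ribosome production and cell growth.

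Smarcb1 itself, the gene named in the genotype, was low in every tumor and did not separate the groups. It stood at 14.8, 8.86, 7.87 and 10.3 CPM in Myc tumors 1 to 4, against 33.3, 2.52 and 6.23 CPM in SHH tumors 1 to 3, and brain averaged 124 CPM. CPM, counts scaled to a common library size, use library totals adjusted by the trimmed mean of M values (TMM). The groups overlapped, and the log2 fold change, here always Myc over SHH tumors, was -0.42 ± 0.62 SE, edgeR adjusted p = 0.605. SHH tumor 1 was the highest of the 7, and without it the log2 fold change was 1.25 and the adjusted p 0.0545. With limma and quality weights the direction turned and the test passed, at 1.36 with an adjusted p of 0.0459. Library totals ran from 18685672 to 114338058 counts in Myc tumors and from 35662656 to 71390917 counts in SHH tumors, with Myc tumors 1 and 2 the shallowest of the 7 and Myc tumor 3 the deepest. Pairs of libraries of a group differed by far more than counting error (chi-square at least 222 per gene in Myc tumors and 260.5 in SHH tumors), so each counted as 1 sample. The first principal component of the 7 libraries held 61.8% of the variance and put the Myc tumors between -196.24 and -102.22 and the SHH tumors between 147.38 and 207.77. The second held 12.2% and set Myc tumor 2 apart, at -145.46 against 45.45 to 76.09 for the other Myc tumors. Transcripts of the Y chromosome were read in Myc tumors 3 and 4 and in none of the other 5. SHH tumor 1 held the highest sums of myelin and choroid plexus genes and Myc tumor 1 those of pituitary and muscle genes, with the values given under cell types, so the count of a list is also given without both tumors where that moved it over 1.5 times, and for a few lists where it did not.

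Myc and SHH tumors differed in a large part of the transcriptome. Of 21494 genes tested with edgeR's quasi-likelihood test, 8789 (40.9%) passed a Benjamini-Hochberg adjusted p under 0.05. Of all genes tested, 4087 (19.0%) were higher in Myc tumors and 4702 (21.9%) were lower. In 42.9% of all genes the libraries of the groups did not overlap, with every Myc tumor above every SHH tumor in 19.8% and below in 23.1%, and 7646 genes met both conditions. Changes of 4-fold or more were called in 1987 genes higher and 3111 genes lower in Myc tumors, and changes of 64-fold or more in 272 higher and 551 lower. Without SHH tumor 1 and Myc tumor 1 together, 2721 genes were higher and 3321 lower, and with the libraries whose file numbers begin with 29 alone (Myc tumors 3 and 4, SHH tumors 1 and 3), 2047 were higher and 2619 lower. The median log2 fold change over all genes was 0.0026. Counts within a gene list are read against these shares.

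**Figure D1:**
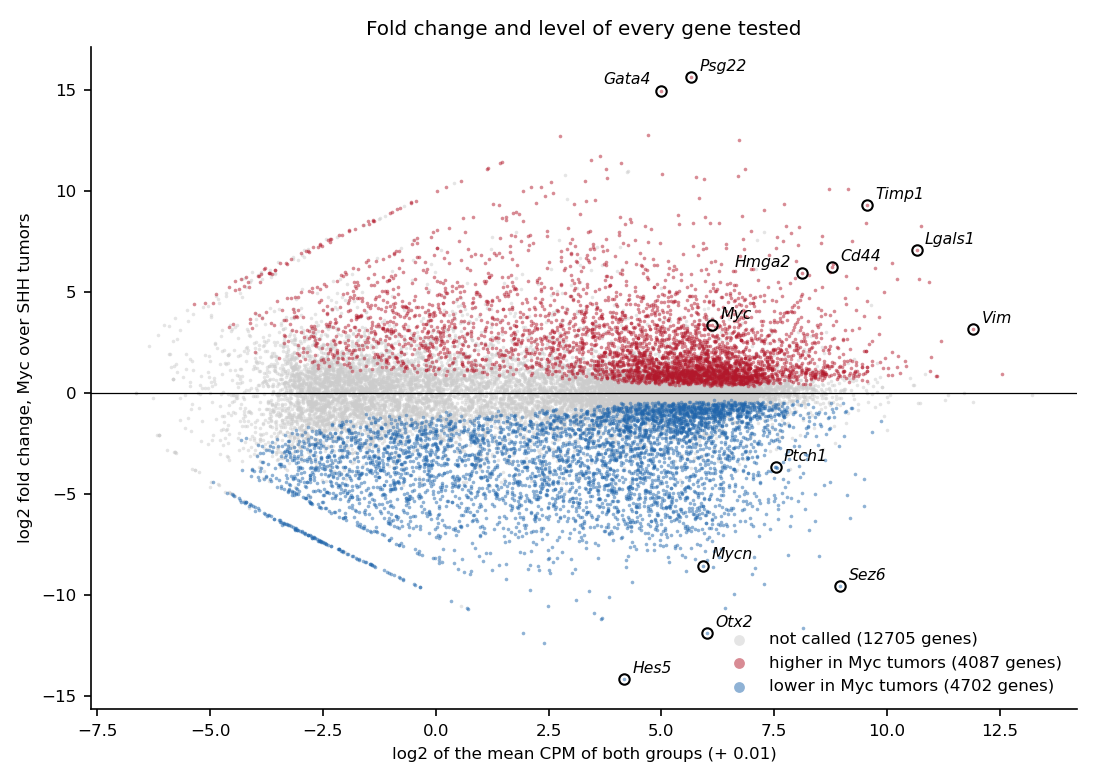
Each point is 1 of the 21494 genes tested, with the log2 of its mean CPM over both groups on the horizontal axis and its log2 fold change (Myc over SHH tumors) on the vertical axis. The 4087 genes higher in Myc tumors are red, the 4702 lower genes blue, genes that did not pass the test grey, and 13 genes of the text are circled. Genes lower in Myc tumors reach to Hes5 at -14.15 and genes higher to Psg22 at 15.63.

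Transcription factors of neural development, Hes5, Otx2, Sox1, Gsx1, Dbx1 and Nhlh2 among them, were prominent among the 12 decreases of greatest size. Hes5 (chr4:154960923-154962371, plus strand, on GRCm38.p6 as all positions here), a transcriptional repressor switched on by Notch in neural stem cells, had no count in any Myc tumor, against 17.95, 31.7 and 58.9 CPM in SHH tumors 1 to 3. It was at least 2642-fold lower in Myc tumors, with the floor set at 3 counts over the summed Myc libraries (edgeR adjusted p = 1.94e-05). Otx2 (chr14:48657677-48673819, minus strand), a homeobox factor of the embryonic forebrain and midbrain, had 0.0547, 0, 0.0262 and 0.0448 CPM in Myc tumors 1 to 4, against 94.5, 92.0 and 199 CPM in SHH tumors 1 to 3. Its log2 fold change was -11.87 ± 1.60 SE, edgeR adjusted p = 0.000141. Sox1, an early neuroectoderm factor, had 0.0547, 0, 0.157 and 0.448 CPM in Myc tumors 1 to 4, against 94.7, 251 and 242 CPM in SHH tumors 1 to 3, with a log2 fold change of -9.95 ± 0.94 SE, edgeR adjusted p = 1.90e-05 and of -10.95 without Myc tumor 4. Sox1ot, a noncoding transcript that overlaps Sox1 and whose reads may be shared with it, had a log2 fold change of -10.64. Gsx1, a homeobox factor of ventral forebrain progenitors, ranged over 0 to 0.0299 CPM in Myc tumors and 6.08 to 36.0 CPM in SHH tumors. Dbx1, a homeobox factor of intermediate neural tube progenitors, ranged over 0 to 0.104 CPM in Myc tumors and 11.3 to 34.4 CPM in SHH tumors. Crb1, an apical polarity protein of neuroepithelium and retina, ranged over 0 to 0.122 CPM in Myc tumors and 10.5 to 72.7 CPM in SHH tumors. The 12 decreases and 12 increases were taken only from called genes without overlap between the groups, so neither trait is a separate result. Cnpy1, a Canopy family member known in zebrafish for FGF signaling at the midbrain-hindbrain boundary, ranged over 0.0448 to 1.67 CPM in Myc tumors and 160.4 to 505 CPM in SHH tumors, and Sez6, a neuronal membrane protein, over 0.209 to 3.36 CPM in Myc tumors and 409.8 to 1324 CPM in SHH tumors. The homeobox gene Nkx2-3 and the neuronal bHLH gene Nhlh2 had log2 fold changes of -10.08 and -10.51. Leaving out 1 library kept each of these calls, while log2 fold changes moved over 1.5-fold to -10.43 without Myc tumor 3 and -13.66 without Myc tumor 4 for Gsx1 (all libraries -11.11), -10.91 without Myc tumor 2 for Dbx1 (-9.79), -10.64 without Myc tumor 3 and -8.63 without SHH tumor 3 for Crb1 (-9.33), -11.31 without Myc tumor 2 for Cnpy1 (-9.44), -10.65 without Myc tumor 4 for Sez6 (-9.55), -13.77 without Myc tumor 3 and -8.56 without SHH tumor 3 for Nkx2-3, -12.53 without Myc tumor 1 and -9.73 without Myc tumor 3 and -9.77 without SHH tumor 1 for Nhlh2 and -12.89 without Myc tumor 4 and -9.97 without SHH tumor 2 for Sox1ot. The remaining gene of the 12, ranked 3 by size, was Ttr, the thyroxine carrier of the choroid plexus. Ttr stood at 0.601, 0, 0.148 and 0.0747 CPM in Myc tumors 1 to 4, against 1679, 1.20 and 0.804 CPM in SHH tumors 1 to 3: SHH tumor 1 was high and the other SHH tumors were near the Myc tumors. Its log2 fold change was -11.61 with all libraries and -2.47 without SHH tumor 1 (edgeR adjusted p = 0.260), and it was -12.50 without Myc tumor 1.

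The increases of greatest size in Myc tumors spanned trophoblast, endoderm, cartilage and cytotoxic lymphocyte genes, and each was uneven from tumor to tumor. Psg22, a pregnancy-specific glycoprotein of the trophoblast and 1 of a family of near-identical genes whose reads may be split, had 1.37, 245, 0.0611 and 158 CPM in Myc tumors 1 to 4, against 0, 0 and 0 CPM in SHH tumors 1 to 3. Gata4 (chr14:63198922-63271692, minus strand), a zinc finger factor of heart, gonad and endoderm, had 2.24, 41.7, 0.698 and 209.5 CPM in Myc tumors 1 to 4, against 0, 0 and 0 CPM in SHH tumors 1 to 3. Both had no count in the 3 SHH tumors, so that Psg22 was at least 5722-fold and Gata4 at least 3594-fold higher in Myc tumors (floor of 3 counts over the summed SHH libraries; edgeR adjusted p = 0.0231 and 0.00538). Within the Myc group, Psg22 was high in tumors 2 and 4 and low in 1 and 3, and Gata4 was highest in tumor 4 and lowest in tumor 3. Epyc, a small leucine-rich proteoglycan of cartilage, followed Psg22 in its pattern, at 9.40, 527, 5.51 and 305 CPM in Myc tumors 1 to 4, against 0, 0.0470 and 0.0453 CPM in SHH tumors 1 to 3. Gzmc, Gzme, Gzmf and Gzmg, granzymes of activated cytotoxic lymphocytes that share much of their sequence, were highest in Myc tumor 3: Gzmf had 21.4, 0.782, 185 and 0.0149 CPM in Myc tumors 1 to 4, against 0, 0 and 0.0113 CPM in SHH tumors 1 to 3. Gzme had no count in SHH tumors and was at least 762-fold higher in Myc tumors on the same floor. Cxcl2, a neutrophil chemokine, ranged least of the list within Myc tumors, at 30.0, 169, 45.4 and 14.1 CPM in Myc tumors 1 to 4, against 0.0258, 0.0235 and 0.0453 CPM in SHH tumors 1 to 3. Cxcl2 had a log2 fold change of 10.82 ± 2.22 SE, edgeR adjusted p = 0.00194. Dynap, Ang2, Serpinb9b and Ankrd1, the last a YAP-responsive gene, made up the 12 with log2 fold changes of 11.51, 11.37, 10.74 and 10.68. Of the 12, Psg22 lost its call without SHH tumors 1, 2 or 3 (edgeR adjusted p = 0.0539 to 0.0566), Gzmg without Myc tumor 3 or SHH tumors 1, 2 or 3 (edgeR adjusted p = 0.0573 to 0.0771), Ang2 without SHH tumors 1, 2 or 3 (edgeR adjusted p = 0.0659 to 0.0695), Serpinb9b without SHH tumors 1, 2 or 3 (edgeR adjusted p = 0.0527 to 0.0553) and Ankrd1 without SHH tumors 1, 2 or 3 (edgeR adjusted p = 0.0574 to 0.0653). The others were called without any single library, with log2 fold changes of 12.84 without Myc tumor 4 for Gata4 (14.96 with all), 11.54 without Myc tumor 2 for Epyc (12.52), 9.69 without Myc tumor 2 for Cxcl2, 9.86 without Myc tumor 3 and 14.63 without SHH tumor 3 for Gzmf (12.75), 9.93 without Myc tumor 3 and 13.57 without SHH tumor 3 for Gzmc (11.71), 9.78 without Myc tumor 3 for Gzme (12.72) and 9.76 without Myc tumor 3 and 13.37 without SHH tumor 3 for Dynap. Psg22 was 14.78 without Myc tumor 2 (15.63 with all), Gzmg 6.91 without Myc tumor 3 and 13.71 without SHH tumor 3 (11.10), Ang2 8.71 without Myc tumor 4 and 14.03 without SHH tumor 3, Serpinb9b 8.61 without Myc tumor 4 and Ankrd1 7.59 without Myc tumor 2 and 11.37 without SHH tumor 1.

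Lists of genes known to mark a pathway, a cell type or a complex were then read as counts of called members beside the median log2 fold change, with no test of the list. There were 49 lists, with 776 genes tested among 793 listed.

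**Figure D2:**
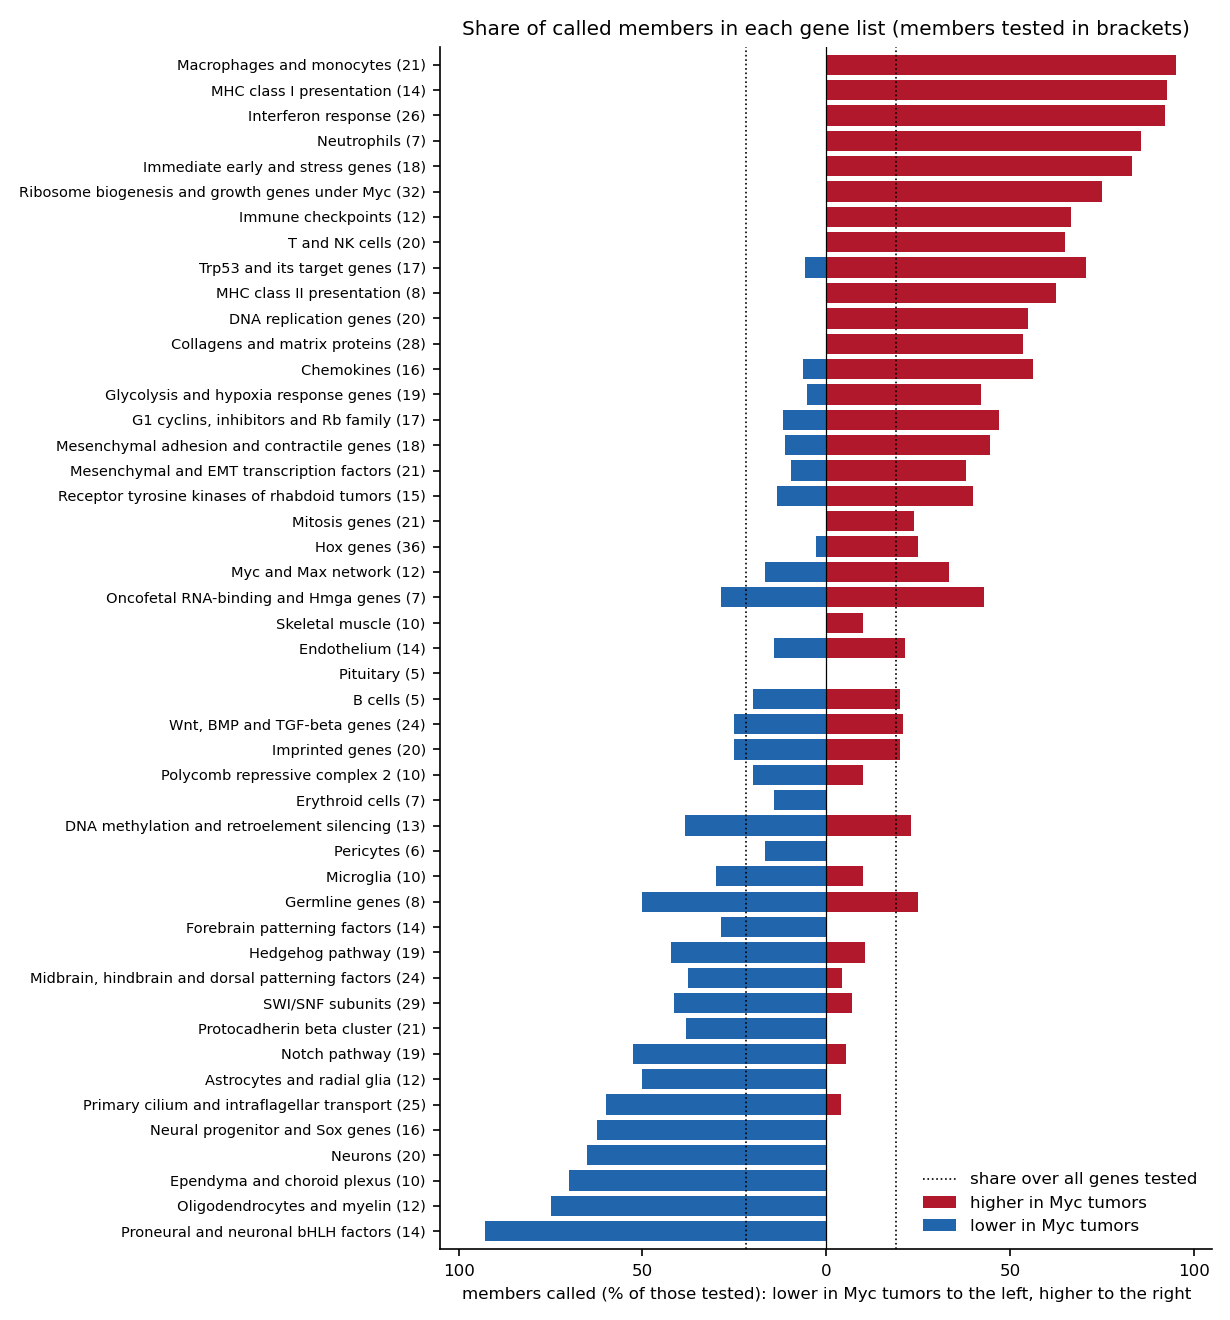
Each row is a gene list with at least 5 members tested (number in brackets), and the bars give the percentage of those members called lower (blue, left) or higher (red, right) in Myc than in SHH tumors. Dotted lines mark the shares over all genes tested, 21.9% lower and 19.0% higher. Macrophage, MHC class I and interferon genes reach furthest to the right, and proneural, myelin, ependymal and neuronal genes furthest to the left.

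Myc was higher in Myc tumors and its paralogs Mycn and Mycl were lower. Myc (chr15:61985391-61990374, plus strand) stood at 133, 165, 97.3 and 113 CPM in Myc tumors 1 to 4, against 10.3, 20.03 and 6.53 CPM in SHH tumors 1 to 3. The groups did not overlap, and the log2 fold change was 3.37 ± 0.40 SE, edgeR adjusted p = 6.12e-05. Mycn (chr12:12936093-12941914, minus strand), its relative in neural progenitors, was lower, at 0.273, 0.156, 0.288 and 0.523 CPM in Myc tumors 1 to 4, against 27.4, 85.5 and 249.4 CPM in SHH tumors 1 to 3. Mycn changed by -8.53 ± 0.83 SE, edgeR adjusted p = 1.96e-05 on the log2 scale, and by -7.45 without SHH tumor 3. Mycl, the third paralog, had 0.711, 3.55, 2.26 and 1.41 CPM in Myc tumors 1 to 4, against 39.5, 76.1 and 77.0 CPM in SHH tumors 1 to 3, a log2 fold change of -5.02 ± 0.57 SE, edgeR adjusted p = 4.49e-05. Every Myc tumor was therefore above every SHH tumor in Myc and below every SHH tumor in Mycn and Mycl. Max, the obligate partner of all 3 proteins, was slightly higher at 76.3 to 141 CPM in Myc tumors and 62.1 to 69.5 CPM in SHH tumors, a log2 fold change of 0.66 ± 0.18 SE, edgeR adjusted p = 0.00955. Max lost its call in a fit of the 7 tumors alone (adjusted p = 0.0657). Of 12 genes of the Myc and Max network, 4 were higher and 2 lower in Myc tumors, with a median log2 fold change of 0.21, and 2 were higher without SHH tumor 1 or without SHH tumor 1 and Myc tumor 1 together.

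Most genes of ribosome biogenesis and growth that Myc is known to regulate were higher in Myc tumors by small amounts. Of 32 genes, 24 were higher and none lower, with a median log2 fold change of 0.93, against 0.0026 over all genes. Utp4, a subunit of the small-subunit processome, had 73.9, 141, 89.3 and 76.9 CPM in Myc tumors 1 to 4, against 25.4, 28.9 and 34.3 CPM in SHH tumors 1 to 3. Utp4 had a log2 fold change of 1.69 ± 0.21 SE, edgeR adjusted p = 9.11e-05. Ncl, nucleolin, had 816, 1117, 897 and 926 CPM in Myc tumors 1 to 4, against 382, 506 and 560.2 CPM in SHH tumors 1 to 3, with a log2 fold change of 0.96 ± 0.17 SE, edgeR adjusted p = 0.000869. The other members called with the smallest p were the nucleolar proteins Rrs1 (1.44), Ddx21 (1.42), Ddx18 (1.21), Utp20 (1.21) and Pes1 (0.93), all given as log2 fold changes and all without overlap between groups. Fbl, fibrillarin, and Cad, the enzyme that opens pyrimidine synthesis, were higher by 1.04 and 1.10 on the log2 scale, but Fbl lost its call without SHH tumor 1 (edgeR adjusted p = 0.0518) and Cad without Myc tumor 3 or SHH tumor 1 (edgeR adjusted p = 0.0537 to 0.0803). Odc1, ornithine decarboxylase and a classic Myc target, did not pass: it ranged over 99.1 to 479.7 CPM in Myc tumors and 80.8 to 138 CPM in SHH tumors. Odc1 had a log2 fold change of 1.16 ± 0.55 SE, edgeR adjusted p = 0.103. Without SHH tumor 1, which had the lowest summed level of the list, 16 of the 32 were called, and 13 were called without SHH tumor 1 and Myc tumor 1 together.

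Promoters are shown for Utp4 and Pes1 because they hold the E-box CACGTG, the letters that Myc and Max bind. Sequences are 300 bases of RefSeq on GRCm38.p6, from 250 before to 50 after the gene start, read 5′ to 3′ in the direction of the gene, with the E-box in capitals. Utp4 lies at chr8:106893390-106893689, plus strand and Pes1 at chr11:3963725-3964024, plus strand.
Utp4: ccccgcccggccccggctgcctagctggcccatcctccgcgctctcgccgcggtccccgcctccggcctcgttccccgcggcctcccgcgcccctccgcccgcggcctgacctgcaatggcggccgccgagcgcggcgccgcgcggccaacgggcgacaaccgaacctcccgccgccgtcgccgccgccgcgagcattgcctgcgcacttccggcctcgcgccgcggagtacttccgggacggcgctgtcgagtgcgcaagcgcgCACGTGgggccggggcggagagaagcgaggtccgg
Pes1: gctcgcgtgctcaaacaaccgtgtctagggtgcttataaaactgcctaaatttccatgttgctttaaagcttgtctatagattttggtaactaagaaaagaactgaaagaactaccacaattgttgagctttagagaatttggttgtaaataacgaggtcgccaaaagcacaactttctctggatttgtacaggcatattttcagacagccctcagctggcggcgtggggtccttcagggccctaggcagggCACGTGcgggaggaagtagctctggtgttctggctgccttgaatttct
CACGTG, which reads the same on both strands, stood in 8.09% of all 27025 promoters of this length, in 12.1% of promoters of genes higher in Myc tumors, 8.59% of those lower and 10.7% of those not called. In the ribosome biogenesis list it stood in 6 of 26 promoters. A match describes letters and not binding.

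**Figure D3:**
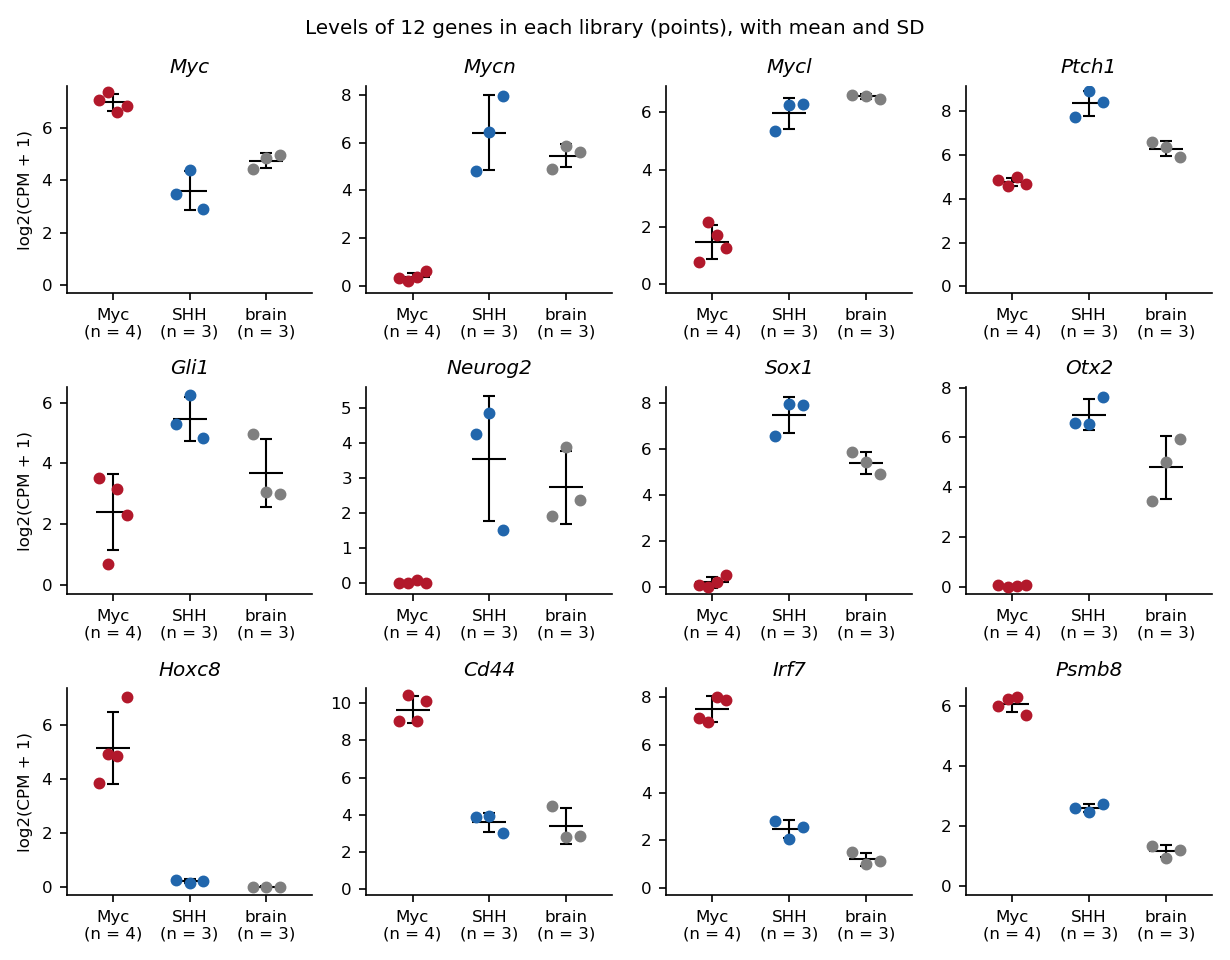
Each panel is a gene, with log2(CPM + 1) on the vertical axis, and each point is a library of Myc tumors (red, n = 4), SHH tumors (blue, n = 3) or wild-type brain (grey, n = 3). Bars are the mean and SD. Myc, Hoxc8, Cd44, Irf7 and Psmb8 are higher in every Myc tumor than in any SHH tumor, and Mycn, Mycl, Ptch1, Gli1, Neurog2, Sox1 and Otx2 are lower.

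The Hedgehog targets Ptch1 and Gli1 and the ligand Shh were lower in Myc tumors, and the transducer Smo and the repressor Gli3 did not pass the test. Ptch1, the receptor that is also a transcriptional target of the pathway, had 28.3, 23.3, 31.0 and 24.5 CPM in Myc tumors 1 to 4, against 214, 476 and 339 CPM in SHH tumors 1 to 3, and brain averaged 78.4 CPM. Its log2 fold change was -3.68 ± 0.51 SE, edgeR adjusted p = 0.000166, with no overlap. Gli1, the factor induced by active signaling, had 10.3, 0.626, 7.85 and 3.87 CPM in Myc tumors 1 to 4, against 38.0, 74.4 and 27.3 CPM in SHH tumors 1 to 3. Gli1 had a log2 fold change of -3.04 ± 0.80 SE, edgeR adjusted p = 0.00837. The ligand Shh had 0.437, 0.0521, 0.0786 and 0.792 CPM in Myc tumors 1 to 4, against 20.2, 19.0 and 2.11 CPM in SHH tumors 1 to 3, with a log2 fold change of -5.31 ± 1.21 SE, edgeR adjusted p = 0.00369 and of -6.32 without Myc tumor 4. Cdon, a coreceptor, was lower too, at -3.88, and -2.29 without SHH tumor 3. Hhip, a decoy receptor, and Gli2 were called at log2 fold changes of -3.11 and -3.91, but Hhip lost its call without SHH tumor 1 (edgeR adjusted p = 0.107) and Gli2 without Myc tumors 2, 3 or 4 or SHH tumors 2 or 3 (edgeR adjusted p = 0.0503 to 0.0823). Hhip was -4.06 without Myc tumor 2 and -1.95 without SHH tumor 1, and Gli2 -5.87 without Myc tumor 1 and -3.32 without SHH tumor 3. Smo, the transducer, ranged over 75.9 to 97.5 CPM in Myc tumors and 79.4 to 193 CPM in SHH tumors (edgeR adjusted p = 0.243). Gli3, mainly a repressor, ranged over 47.2 to 124 CPM in Myc tumors and 19.7 to 44.5 CPM in SHH tumors (edgeR adjusted p = 0.107). Evc2, a ciliary cofactor of Smo, was higher, at 102, 125, 77.3 and 80.7 CPM in Myc tumors 1 to 4, against 17.8, 30.4 and 62.1 CPM in SHH tumors 1 to 3 (1.38 on the log2 scale, and 1.99 without SHH tumor 3). In all, 8 of 19 Hedgehog genes were lower and 2 higher, with a median log2 fold change of -1.15, and 1 was higher without Myc tumor 2 or SHH tumor 1 or 2 or without SHH tumor 1 and Myc tumor 1 together.

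Genes of the primary cilium, the organelle where Hedgehog signals are processed, were lower in 15 of 25 and higher in 1, with a median log2 fold change of -0.98, and none was higher without Myc tumor 3 or 4 or SHH tumor 1 or 2 or without SHH tumor 1 and Myc tumor 1 together. Bbs1, a subunit of the BBSome that carries receptors through the cilium, had 2.57, 5.16, 3.63 and 6.91 CPM in Myc tumors 1 to 4, against 51.9, 51.5 and 47.9 CPM in SHH tumors 1 to 3. Bbs1 had a log2 fold change of -3.46 ± 0.36 SE, edgeR adjusted p = 2.54e-05. Bbs4, of the same complex, ranged over 12.4 to 26.1 CPM in Myc tumors and 49.2 to 58.4 CPM in SHH tumors, -1.62 on the log2 scale. Kif3a, the anterograde motor of the axoneme, ranged over 22.7 to 37.4 CPM in Myc tumors and 66.3 to 95.7 CPM in SHH tumors (-1.46). Rpgrip1l, a transition zone protein, Dync2h1, the retrograde motor, and Bbs2 followed at -1.39, -1.40 and -1.39. These 6 genes were called without any single library, and none overlapped between the groups.

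Of 19 Notch genes, 10 were lower in Myc tumors, some ligands and targets among them, 1 was higher and the other 8 did not pass, with a median of -1.53, and 2 were higher without Myc tumor 2. Dll3, a ligand-like inhibitor on neural progenitors, had 0, 0.626, 0.410 and 0.463 CPM in Myc tumors 1 to 4, against 10.7, 20.4 and 17.04 CPM in SHH tumors 1 to 3. Dll3 had a log2 fold change of -5.39 ± 0.92 SE, edgeR adjusted p = 0.000583. Dll1, an activating ligand, ranged over 0.807 to 10.2 CPM in Myc tumors and 31.8 to 109 CPM in SHH tumors with a log2 fold change of -3.90 and of -4.66 without Myc tumor 1. The Hes family gene Hes6, the target Nrarp, the glycosyltransferase Lfng and the target Hey2 had log2 fold changes of -1.92, -2.44, -1.91 and -2.51, where Nrarp was -3.10 without Myc tumor 2. Hey2 lost its call with limma (adjusted p = 0.0769) and without SHH tumor 1 and Myc tumor 1 together (adjusted p = 0.0555). Rbpj, the DNA-binding partner of the Notch intracellular domain, had 347, 546, 433 and 334 CPM in Myc tumors 1 to 4, against 50.5, 81.8 and 84.0 CPM in SHH tumors 1 to 3 and was the member that was higher. Rbpj had a log2 fold change of 2.52 ± 0.46 SE, edgeR adjusted p = 0.000913. Notch1 ranged over 17.7 to 73.9 CPM in Myc tumors and 16.3 to 89.2 CPM in SHH tumors and did not pass (edgeR adjusted p = 0.432).

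Proneural factors, which commit progenitors to the neuronal lineage, were lower in Myc tumors in 13 of 14, with a median log2 fold change of -5.89. Neurog2, a bHLH factor that starts neurogenesis, ranged over 0 to 0.0698 CPM in Myc tumors and 1.89 to 28.2 CPM in SHH tumors, with a log2 fold change of -8.90, and of -10.55 without Myc tumor 3 and -8.24 without SHH tumor 2. Neurod1 and Nhlh1, factors of young neurons, had log2 fold changes of -6.19 and -6.75, and Neurod1 had -7.36 without Myc tumor 3. Olig2, of motor neuron and oligodendrocyte progenitors, ranged over 0 to 1.18 CPM in Myc tumors and 5.41 to 40.0 CPM in SHH tumors (-4.98) and lost its call without SHH tumor 1 (edgeR adjusted p = 0.0552), with values of -5.69 without Myc tumor 4 and -3.52 without SHH tumor 1. In Neurog2 and Olig2 every Myc tumor stood below every SHH tumor.

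Progenitor and Sox genes were lower in 10 of 16, none was higher, and the median was -3.24. Sox11, a factor of immature neurons, had 1.53, 0.730, 2.92 and 1.66 CPM in Myc tumors 1 to 4, against 159.9, 574 and 598 CPM in SHH tumors 1 to 3, with a log2 fold change of -7.99 ± 1.15 SE, edgeR adjusted p = 0.000208, and brain averaged 657 CPM. Msi1, an RNA-binding protein of neural stem cells, had 8.09, 22.7, 13.5 and 7.44 CPM in Myc tumors 1 to 4, against 119.7, 262 and 363 CPM in SHH tumors 1 to 3. Msi1 differed by -4.26 ± 0.80 SE, edgeR adjusted p = 0.00109 on the log2 scale. Sox2, which keeps neural progenitors undifferentiated, had 18.8, 0.104, 2.05 and 3.35 CPM in Myc tumors 1 to 4, against 100.1, 156 and 161 CPM in SHH tumors 1 to 3. Sox2 had a log2 fold change of -4.53 ± 1.04 SE, edgeR adjusted p = 0.00374. Its highest Myc value was in tumor 1, without which the log2 fold change was -6.21. Fabp7, a lipid carrier of radial glia, ranged over 0.261 to 13.2 CPM in Myc tumors and 323 to 641 CPM in SHH tumors (-6.58, and -7.88 without Myc tumor 4). Nes, nestin, is an intermediate filament of progenitors that mesenchymal cells also make: it ranged over 63.4 to 714 CPM in Myc tumors and 64.1 to 177 CPM in SHH tumors and did not pass (edgeR adjusted p = 0.186). Pax6 ranged over 0 to 9.68 CPM in Myc tumors and 2.63 to 31.1 CPM in SHH tumors (edgeR adjusted p = 0.224) and passed with limma (adjusted p = 0.0314).

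Neuronal markers were lower in Myc tumors in 13 of 20 and higher in none, with a median of -4.86, and 13 were also lower without SHH tumor 1 and Myc tumor 1 together. Elavl4, a neuronal RNA-binding protein, had 2.19, 0.678, 1.06 and 1.18 CPM in Myc tumors 1 to 4, against 175, 196 and 85.2 CPM in SHH tumors 1 to 3. Elavl4 had a log2 fold change of -6.91 ± 0.73 SE, edgeR adjusted p = 3.01e-05. Dcx, doublecortin of migrating neurons, had 0.164, 0, 0.410 and 0.583 CPM in Myc tumors 1 to 4, against 70.0, 101.4 and 14.4 CPM in SHH tumors 1 to 3, and brain averaged 1315 CPM. Its log2 fold change was -7.54 ± 0.99 SE, edgeR adjusted p = 0.000118. Tubb3 and Rbfox3, the tubulin and the splicing factor by which neurons are recognised, had log2 fold changes of -5.60 ± 1.01 SE, edgeR adjusted p = 0.000846 and -5.63 ± 0.83 SE, edgeR adjusted p = 0.000232. Snap25, of synaptic vesicle fusion, was not called, at 163, 0.939, 168 and 66.6 CPM in Myc tumors 1 to 4, against 1452, 413 and 148 CPM in SHH tumors 1 to 3 (edgeR adjusted p = 0.131), and passed with limma (adjusted p = 0.0499). The summed level of the 20 markers was 778, 122, 2506 and 746 CPM in Myc tumors 1 to 4, against 7088, 4317 and 1146 CPM in SHH tumors 1 to 3, and 9515 to 10980.0 CPM in brain. Myc tumor 3 stood above SHH tumor 3 in that sum. The part of these markers in the values of the Notch, proneural and Sox genes was not tested.

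Transcription factors of position along the neural axis were lower in Myc tumors in part, mainly those of midbrain, hindbrain and dorsal regions. En2, of the midbrain-hindbrain boundary, had 0.0547, 0.104, 0.454 and 0.120 CPM in Myc tumors 1 to 4, against 43.7, 85.2 and 149.6 CPM in SHH tumors 1 to 3. En2 changed by -8.79 ± 1.37 SE, edgeR adjusted p = 0.000325 on the log2 scale, and by -9.87 without Myc tumor 3. Pax5 of the same region ranged over 0.0149 to 0.183 CPM in Myc tumors and 3.39 to 32.2 CPM in SHH tumors (-7.10, and -8.07 without Myc tumor 3 and -5.26 without SHH tumor 2), and Msx3, of the dorsal neural tube, over 0.109 to 1.30 CPM in Myc tumors and 14.5 to 138 CPM in SHH tumors (-6.83, and -6.19 without SHH tumor 3). Zic1, a zinc finger factor of dorsal brain, had 56.7, 95.7, 15.9 and 113 CPM in Myc tumors 1 to 4, against 298, 210.0 and 447 CPM in SHH tumors 1 to 3: no value overlapped, yet the test did not pass. Zic1 had a log2 fold change of -2.18 ± 1.21 SE, edgeR adjusted p = 0.163. Zic1 passed with limma (adjusted p = 0.00612) and in a fit of the 7 tumors alone (adjusted p = 0.0334). Emx2, a homeobox factor of the cortex, ranged over 0.417 to 12.3 CPM in Myc tumors and 1.20 to 7.68 CPM in SHH tumors and did not pass (edgeR adjusted p = 0.915). Of 24 midbrain, hindbrain and dorsal factors, 9 were lower and 1 higher (none higher without Myc tumor 2 or SHH tumor 2 or 3, and 5 lower without SHH tumor 1 and Myc tumor 1 together). Of 14 forebrain factors, 4 were lower, near the share of 21.9% over all genes, and none was higher.

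Among Hox genes, which give cells a position along the trunk, members of the HoxC cluster made up most of the calls. Its 8 tested members summed to 22.6, 72.7, 85.0 and 214 CPM in Myc tumors 1 to 4, against 1.005, 0.917 and 1.13 CPM in SHH tumors 1 to 3, and 7 of the 8 were called higher (median log2 fold change 5.59). In the HoxA cluster 2 of 11 were higher, in HoxB none of 9 and in HoxD none of 8, with 1 lower. The number lower over all clusters was 2 without Myc tumor 1, Myc tumor 4 or SHH tumor 3 or without SHH tumor 1 and Myc tumor 1 together and 0 without Myc tumor 2 or SHH tumor 2. Hoxc8 (chr15:102990607-102994111, plus strand) had 13.3, 29.05, 28.1 and 128 CPM in Myc tumors 1 to 4, against 0.206, 0.0940 and 0.170 CPM in SHH tumors 1 to 3. Hoxc8 changed by 8.29 ± 1.03 SE, edgeR adjusted p = 8.37e-05 on the log2 scale, and by 7.18 without Myc tumor 4. Hoxc6 had 3.72, 15.4, 29.8 and 41.5 CPM in Myc tumors 1 to 4, against 0.103, 0.188 and 0.340 CPM in SHH tumors 1 to 3. Hoxc6 differed by 6.69 ± 0.94 SE, edgeR adjusted p = 0.000177 on the log2 scale. Hoxc10 ranged over 0.437 to 7.25 CPM in Myc tumors and 0 to 0.103 CPM in SHH tumors (6.62, and 7.81 without SHH tumor 1 and 5.88 without SHH tumor 3). Brain held next to none of these, with mean levels of 0.00588, 0.00912 and 0.00265 CPM. The HoxA genes were uneven: the summed cluster was 7.38, 151, 241 and 1.75 CPM in Myc tumors 1 to 4, against 1.21, 1.06 and 35.4 CPM in SHH tumors 1 to 3. Hoxa13, the most distal member, was high in Myc tumor 3 alone, at 0.0547, 0.0521, 32.8 and 0.0149 CPM in Myc tumors 1 to 4, against 0.0515, 0.0235 and 0.0340 CPM in SHH tumors 1 to 3, and its log2 fold change of 7.77 became -0.12 without that tumor. Hoxa13 lost its call without Myc tumor 3 or SHH tumors 1, 2 or 3 (edgeR adjusted p = 0.0877 to 0.960). Hoxd10 had 0, 0.521, 0.0175 and 1.75 CPM in Myc tumors 1 to 4, against 8.603, 66.3 and 0.691 CPM in SHH tumors 1 to 3, with SHH tumor 2 high. Its log2 fold change was -5.42, and -7.34 without Myc tumor 4 and -2.98 without SHH tumor 2, and it lost its call without Myc tumors 1 or 2 or SHH tumor 2 (edgeR adjusted p = 0.0516 to 0.191). None of 3 Hox cluster noncoding RNAs passed. Counting by strand was not stated, so sense and antisense reads of Hox clusters may be mixed.

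**Figure D4:**
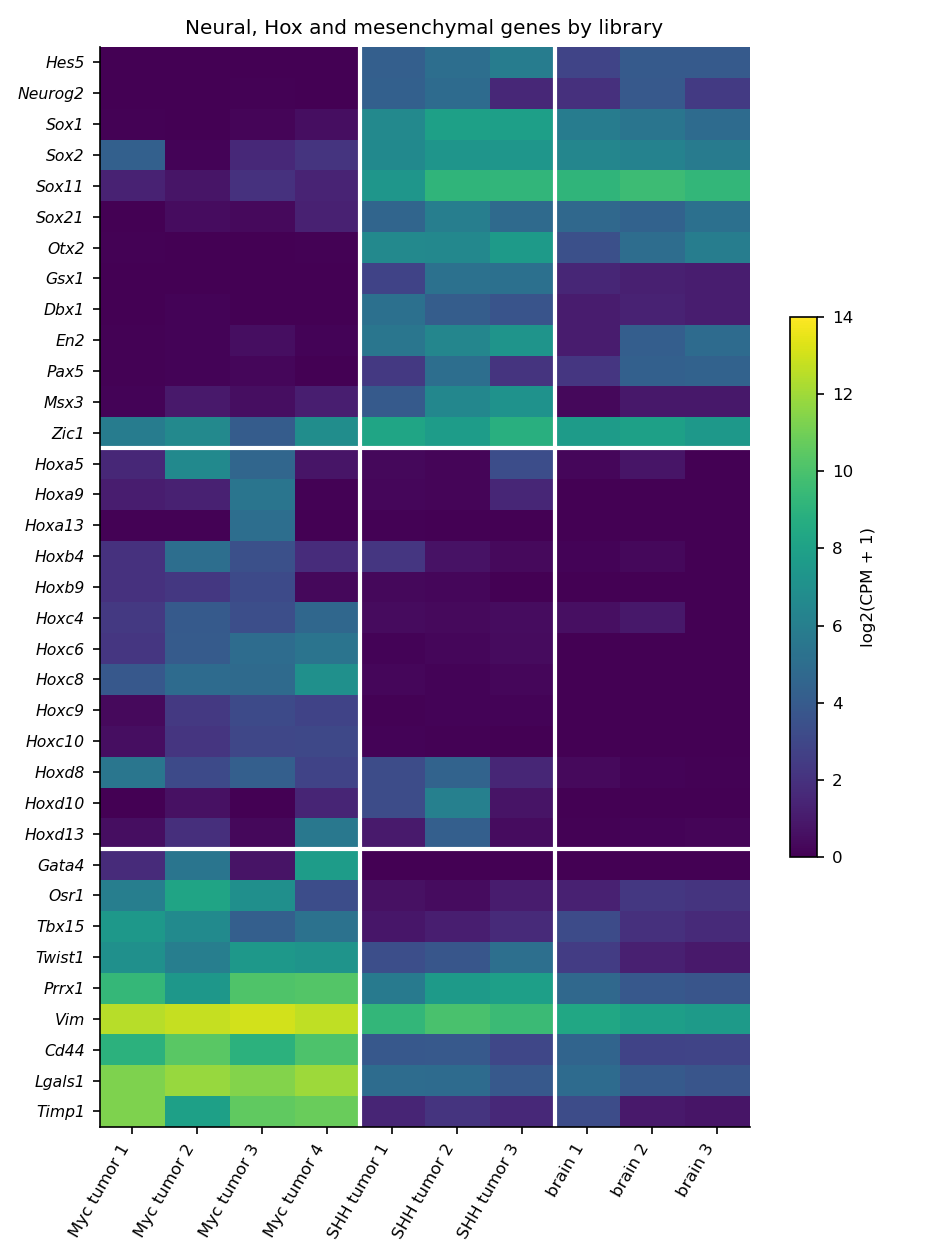
Rows are neural (top), Hox (middle) and mesenchymal genes (bottom), columns are the 4 Myc tumors, 3 SHH tumors and 3 wild-type brains, and colour is log2(CPM + 1). Neural genes are dark in Myc tumors except Zic1 in all 4 and Sox2 in tumor 1, HoxC genes are dark in SHH tumors and brain, and Vim, Cd44, Lgals1 and Timp1 are bright in Myc tumors.

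Some mesenchymal genes were higher in Myc tumors, abundant cytoskeletal and adhesion genes among them, and others did not pass the test. Vim, vimentin, the intermediate filament of mesenchymal cells, had 5747, 7069.5, 8470.2 and 6492 CPM in Myc tumors 1 to 4, against 608, 993 and 731 CPM in SHH tumors 1 to 3. Vim had a log2 fold change of 3.16 ± 0.72 SE, edgeR adjusted p = 0.00359. Cd44, the hyaluronan receptor, had 517, 1358, 518 and 1088 CPM in Myc tumors 1 to 4, against 13.6, 14.2 and 7.02 CPM in SHH tumors 1 to 3. Cd44 differed by 6.23 ± 0.99 SE, edgeR adjusted p = 0.000372 on the log2 scale. Lgals1, galectin 1, had 2471, 3672, 2733 and 3955 CPM in Myc tumors 1 to 4, against 29.3, 28.9 and 14.2 CPM in SHH tumors 1 to 3. Lgals1 had a log2 fold change of 7.05 ± 0.90 SE, edgeR adjusted p = 0.000103. In none of these did a Myc tumor fall below an SHH tumor. Of 18 genes of mesenchymal adhesion and contraction, 8 were higher, 2 lower and 8 not called, with a median of 2.18, and 1 was lower without Myc tumor 3 or 4 or SHH tumor 1 or 3 or without SHH tumor 1 and Myc tumor 1 together. Those lower were L1cam, the neuronal adhesion molecule (-4.94), and Cdh2, N-cadherin of neural and mesenchymal cells (-2.43), which lost its call without Myc tumors 1, 3 or 4 or SHH tumors 1, 2 or 3 (edgeR adjusted p = 0.0663 to 0.0892). Ncam1, a neural adhesion molecule, ranged over 36.9 to 144 CPM in Myc tumors and 63.6 to 335 CPM in SHH tumors and did not pass (edgeR adjusted p = 0.333), but passed with limma (adjusted p = 0.0354). Cdh1, E-cadherin, ranged over 2.05 to 8.04 CPM in Myc tumors and 1.18 to 79.3 CPM in SHH tumors and did not pass (edgeR adjusted p = 0.0533), and it passed without Myc tumor 1 or SHH tumor 2 (edgeR adjusted p = 0.0452 and 0.0222). Cdh1 also passed with RLE size factors (adjusted p = 0.0498), with a minimum count of 50 (adjusted p = 0.0498), with DESeq2 (adjusted p = 0.0124) and with the file numbers that begin with 29 (adjusted p = 0.0485).

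Transcription factors of mesenchyme were higher in 8 of 21 and lower in 2, with a median of 2.28, and 5 of 21 were higher without SHH tumor 2 and 4 without SHH tumor 1 and Myc tumor 1 together. The number lower was 1 without Myc tumor 2 or SHH tumor 1 or 2. Snai1, a repressor of epithelial genes, had 10.3, 6.26, 16.1 and 9.92 CPM in Myc tumors 1 to 4, against 0.902, 1.86 and 0.940 CPM in SHH tumors 1 to 3. Snai1 had a log2 fold change of 3.11 ± 0.84 SE, edgeR adjusted p = 0.00955. Snai1 lost its call without SHH tumor 1 and Myc tumor 1 together (adjusted p = 0.0596). Osr1, of kidney and limb mesenchyme, ranged over 8.91 to 283 CPM in Myc tumors and 0.376 to 1.13 CPM in SHH tumors (7.41, and 6.51 without Myc tumor 2). Tbx15, of limb and skin mesenchyme, ranged over 18.03 to 178 CPM in Myc tumors and 0.824 to 2.16 CPM in SHH tumors (5.88, and 5.19 without Myc tumor 1). Twist1, a bHLH factor of cranial mesenchyme, averaged 129 ± 47.2 CPM in Myc tumors and 18.4 ± 13.4 CPM in SHH tumors (SD, n = 4 and 3). It was called at 2.81, stood at 3.59 without SHH tumor 3, and lost its call without Myc tumors 1, 3 or 4 or SHH tumors 1 or 2 (edgeR adjusted p = 0.0569 to 0.124). Prrx1, a homeobox factor of limb mesenchyme, averaged 789 ± 489 CPM in Myc tumors and 162 ± 98.1 CPM in SHH tumors (SD, n = 4 and 3). It was called at 2.28 and lost its call without Myc tumors 3 or 4 or SHH tumors 1 or 2 (edgeR adjusted p = 0.0705 to 0.114). Snai2 did not pass, at 5.63, 5.37, 3.59 and 4.21 CPM in Myc tumors 1 to 4, against 0.902, 0.823 and 3.44 CPM in SHH tumors 1 to 3 (edgeR adjusted p = 0.261).

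Collagens and matrix proteins were higher in 15 of 28 and lower in none, with a median of 2.70, and in 9 without SHH tumor 1 or SHH tumor 3 or without SHH tumor 1 and Myc tumor 1 together. Timp1, an inhibitor of matrix proteases, had 2502, 249.1, 1537 and 1754 CPM in Myc tumors 1 to 4, against 1.78, 3.38 and 2.02 CPM in SHH tumors 1 to 3. Timp1 had a log2 fold change of 9.30 ± 1.80 SE, edgeR adjusted p = 0.00131. Col5a2, a fibrillar collagen, had 1194, 1567, 1548 and 3233 CPM in Myc tumors 1 to 4, against 62.4, 39.8 and 77.5 CPM in SHH tumors 1 to 3. Col5a2 differed by 4.98 ± 0.90 SE, edgeR adjusted p = 0.000857 on the log2 scale. Col1a1, the main collagen of fibroblasts, had 231, 297, 11.3 and 5548 CPM in Myc tumors 1 to 4, against 55.1, 128 and 36.9 CPM in SHH tumors 1 to 3. It was not called (edgeR adjusted p = 0.0537), and it passed without Myc tumors 1 or 3 (edgeR adjusted p = 0.0238 to 0.0487) and with DESeq2 (adjusted p = 0.00299). Fn1, fibronectin, did not overlap between the groups, at 232 to 951 CPM in Myc tumors and 77.9 to 204 CPM in SHH tumors, and did not pass (edgeR adjusted p = 0.0848). Fn1 passed with DESeq2 (adjusted p = 0.0428) and in a fit of the 7 tumors alone (adjusted p = 0.0299). Markers of pericytes, vessel cells that also make matrix, summed to 91.8 to 228 CPM in Myc tumors, against 138 to 189 CPM in SHH tumors, and of 6 none was higher and 1 lower, or none without SHH tumor 1 and Myc tumor 1 together. Among receptor tyrosine kinases, 6 of 15 were higher and 2 lower, and 1 was lower without Myc tumor 1, 2 or 3 or SHH tumor 1, 2 or 3. The numbers were 3 higher and none lower without SHH tumor 1 and Myc tumor 1 together. Axl, a receptor of mesenchymal and immune cells, had 778, 739.5, 621 and 619.6 CPM in Myc tumors 1 to 4, against 73.8, 28.7 and 44.2 CPM in SHH tumors 1 to 3. Axl differed by 3.82 ± 0.50 SE, edgeR adjusted p = 0.000121 on the log2 scale. Met, the hepatocyte growth factor receptor, ranged over 20.1 to 178 CPM in Myc tumors and 1.52 to 3.81 CPM in SHH tumors (4.90, and 4.03 without Myc tumor 2). Egfr, the epidermal growth factor receptor, ranged over 188 to 503 CPM in Myc tumors and 16.8 to 64.1 CPM in SHH tumors (3.09, and 3.72 without SHH tumor 2). Pdgfra, a receptor of mesenchymal and glial progenitors, called at 2.71, lost its call without SHH tumors 1 or 2 (edgeR adjusted p = 0.0531 to 0.0583) and stood at 4.03 without SHH tumor 3.

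Oncofetal genes, which are active in the embryo and again in tumors, were higher in 3 of 7 and lower in 2, with a median of 3.95, and 1 was lower without SHH tumor 2. The numbers were 1 higher and 1 lower without SHH tumor 1 and Myc tumor 1 together. Hmga2, an architectural DNA-binding protein of fetal tissue, had 506, 794, 504 and 371 CPM in Myc tumors 1 to 4, against 3.12, 13.4 and 10.3 CPM in SHH tumors 1 to 3. Hmga2 had a log2 fold change of 5.92 ± 1.55 SE, edgeR adjusted p = 0.00806. Hmga2 lost its call without SHH tumor 1 and Myc tumor 1 together (adjusted p = 0.0512). Hmga1 had 413, 604, 396 and 346 CPM in Myc tumors 1 to 4, against 35.5, 32.9 and 11.5 CPM in SHH tumors 1 to 3, 4.04 ± 0.64 SE, edgeR adjusted p = 0.000352 on the log2 scale, and brain averaged 2.35 CPM of Hmga2 and 50.9 CPM of Hmga1. Lin28a and Lin28b, which block let-7 microRNAs, were lower, at -4.74 (-5.65 without Myc tumor 3) and -3.12, where Lin28b lost its call without SHH tumor 2 (edgeR adjusted p = 0.117) and then stood at -2.24. Igf2bp2, an mRNA-binding protein, was higher by 4.57 on the log2 scale. It lost its call without SHH tumors 1 or 3 (edgeR adjusted p = 0.0511 to 0.0675) and stood at 3.98 without Myc tumor 2 and 6.27 without SHH tumor 2. Its relatives did not pass: Igf2bp1 ranged over 1.04 to 141 CPM in Myc tumors and 0.567 to 5.97 CPM in SHH tumors (edgeR adjusted p = 0.110), though it passed with DESeq2 (adjusted p = 0.0206). Igf2bp3 ranged over 0.601 to 67.8 CPM in Myc tumors and 2.01 to 47.3 CPM in SHH tumors (edgeR adjusted p = 0.915).

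Imprinted genes, read from a single parental copy, were called in shares near those over all genes, with 5 of 20 lower, 4 higher and a median of -0.29, and 2 were higher without Myc tumor 1 or 4 or SHH tumor 2 or 3 and 1 without SHH tumor 1 and Myc tumor 1 together. Snrpn, of the Prader-Willi cluster, had 4.32, 3.49, 5.31 and 4.62 CPM in Myc tumors 1 to 4, against 178, 107 and 39.7 CPM in SHH tumors 1 to 3. Snrpn had a log2 fold change of -4.60 ± 0.47 SE, edgeR adjusted p = 2.25e-05. Peg3, a zinc finger gene, had 20.8, 14.4, 20.7 and 27.9 CPM in Myc tumors 1 to 4, against 532, 579 and 76.2 CPM in SHH tumors 1 to 3. Peg3 differed by -4.24 ± 0.53 SE, edgeR adjusted p = 8.74e-05 on the log2 scale. Magel2 and Ndn, neighbours of Snrpn in the same cluster, were lower at -5.73 (-6.34 without Myc tumor 3 and -4.20 without SHH tumor 2) and -2.94 (-3.56 without Myc tumor 1 and -2.35 without SHH tumor 2). Dlk1, a Notch-like ligand, was higher but uneven, at 1601, 233, 55.7 and 2367 CPM in Myc tumors 1 to 4, against 43.7, 8.91 and 6.01 CPM in SHH tumors 1 to 3 (5.77, and 4.95 without Myc tumor 4 and 7.15 without SHH tumor 1). Igf2, a fetal growth factor, ranged over 30.0 to 2153 CPM in Myc tumors and 69.4 to 470.1 CPM in SHH tumors (edgeR adjusted p = 0.394).

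Of 20 genes of DNA replication, 11 were higher in Myc tumors and none lower, and the proliferation markers Mki67 and Pcna did not pass the test. Cdt1, which loads the replicative helicase, had 74.3, 111, 88.7 and 66.9 CPM in Myc tumors 1 to 4, against 5.15, 15.6 and 16.1 CPM in SHH tumors 1 to 3. Cdt1 had a log2 fold change of 2.79 ± 0.41 SE, edgeR adjusted p = 0.000216. Mcm6, a subunit of that helicase, had 173, 182, 123 and 143 CPM in Myc tumors 1 to 4, against 26.9, 69.6 and 83.2 CPM in SHH tumors 1 to 3. Mcm6 differed by 1.37 ± 0.29 SE, edgeR adjusted p = 0.00247 on the log2 scale. Mki67, the nuclear marker of cycling cells, ranged over 80.8 to 135 CPM in Myc tumors and 37.7 to 144 CPM in SHH tumors (edgeR adjusted p = 0.731). Pcna, the sliding clamp of DNA polymerases, ranged over 107 to 124 CPM in Myc tumors and 59.1 to 129.5 CPM in SHH tumors (edgeR adjusted p = 0.368). Mitosis genes were higher in 5 of 21, near the share of 19.0% over all genes, and lower in none. The number higher was 2 to 3 without SHH tumor 1 or Myc tumors 2, 3 or 4, and 1 without SHH tumor 1 and Myc tumor 1 together. Among the 5 was Cdk1, at 94.0, 164, 103 and 90.0 CPM in Myc tumors 1 to 4, against 12.1, 51.6 and 45.2 CPM in SHH tumors 1 to 3 (log2 fold change 1.63 ± 0.45 SE, edgeR adjusted p = 0.0103). SHH tumor 1 was the lowest of the 7 in the summed level of both lists.

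Among inhibitors of the cell cycle, Cdkn2a, Cdkn1a and Cdkn2b were higher in Myc tumors, Cdkn1b was lower, and Cdkn2c and Cdkn2d did not pass. Cdkn2a, which encodes p16 and p19 ARF, had 48.1, 38.4, 102 and 25.1 CPM in Myc tumors 1 to 4, against 2.09, 3.60 and 2.69 CPM in SHH tumors 1 to 3. Cdkn2a had a log2 fold change of 4.26 ± 0.47 SE, edgeR adjusted p = 3.66e-05. Cdkn1a, p21, had 299, 169, 459 and 437 CPM in Myc tumors 1 to 4, against 22.9, 29.5 and 8.31 CPM in SHH tumors 1 to 3. Cdkn1a differed by 4.08 ± 0.53 SE, edgeR adjusted p = 0.000107 on the log2 scale. Cdkn1b, p27, had 99.5, 161, 112 and 118 CPM in Myc tumors 1 to 4, against 140.2, 196 and 233 CPM in SHH tumors 1 to 3, with overlap and a log2 fold change of -0.63 ± 0.21 SE, edgeR adjusted p = 0.0295. It lost its call without Myc tumors 1 or 3 or SHH tumors 2 or 3 (edgeR adjusted p = 0.0529 to 0.137). Rb1, the retinoblastoma gene, was lower, at 32.3, 17.3, 25.8 and 31.2 CPM in Myc tumors 1 to 4, against 61.5, 83.0 and 85.2 CPM in SHH tumors 1 to 3. Rb1 had a log2 fold change of -1.52 ± 0.28 SE, edgeR adjusted p = 0.000929. Of the D cyclins, which drive entry into the cycle, Ccnd3 ranged over 54.7 to 179.7 CPM in Myc tumors and 15.1 to 32.9 CPM in SHH tumors and was higher. Ccnd3 had a log2 fold change of 2.25 ± 0.54 SE, edgeR adjusted p = 0.00519. Ccnd1 was higher by 1.29 and lost its call without Myc tumors 1 or 4 or SHH tumors 1, 2 or 3 (edgeR adjusted p = 0.0589 to 0.162). Ccnd2 ranged over 97.0 to 844 CPM in Myc tumors and 113 to 375 CPM in SHH tumors without passing (edgeR adjusted p = 0.363). Of 17 G1 genes 8 were higher and 2 lower. With 1 library left out, 4 were higher without Myc tumor 4 or SHH tumor 1, 5 without Myc tumor 1, 2 or 3 or SHH tumor 2, and 6 without SHH tumor 3, and 1 was lower without Myc tumor 1 or 3 or SHH tumor 2 or 3. The number higher was also 4 without SHH tumor 1 and Myc tumor 1 together. Trp53 and its known target genes were higher in 12 of 17 and lower in 1, with a median of 1.68. Aen, an apoptosis nuclease, had 83.5, 111, 147 and 98.6 CPM in Myc tumors 1 to 4, against 29.5, 39.1 and 34.4 CPM in SHH tumors 1 to 3 (log2 fold change 1.68 ± 0.20 SE, edgeR adjusted p = 6.88e-05), and Ccng1, cyclin G1, ranged over 222 to 619.8 CPM in Myc tumors and 95.4 to 97.4 CPM in SHH tumors (2.11). Trp53 itself was higher by 0.77 and lost its call without Myc tumor 4 or SHH tumors 1 or 2 (edgeR adjusted p = 0.0540 to 0.0909).

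Immediate early and stress genes were higher in 15 of 18, with a median of 2.28. Jun, a subunit of the AP-1 transcription factor, had 376, 269, 288 and 437 CPM in Myc tumors 1 to 4, against 71.0, 57.2 and 42.3 CPM in SHH tumors 1 to 3. Jun had a log2 fold change of 2.59 ± 0.49 SE, edgeR adjusted p = 0.00116. Fosl1, another AP-1 subunit, had 48.2, 49.7, 89.0 and 30.7 CPM in Myc tumors 1 to 4, against 0.180, 0.353 and 0.0679 CPM in SHH tumors 1 to 3, 8.12 ± 1.27 SE, edgeR adjusted p = 0.000346 on the log2 scale and 8.84 without SHH tumor 2. Of 19 genes of glycolysis and hypoxia, 8 were higher and 1 lower: Ldha, lactate dehydrogenase, had 528, 594, 517 and 507 CPM in Myc tumors 1 to 4, against 111, 163 and 60.8 CPM in SHH tumors 1 to 3. Ldha had a log2 fold change of 2.27 ± 0.34 SE, edgeR adjusted p = 0.000270. The number higher was 5 without Myc tumor 1 and 4 without Myc tumor 2 or SHH tumor 2 or 3, and the number lower was 0 without SHH tumor 1 or without SHH tumor 1 and Myc tumor 1 together and 2 without SHH tumor 3.

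Genes induced by interferon were higher in Myc tumors. Of 26, 24 were higher and none lower, with a median log2 fold change of 3.99, and 24 were also higher without SHH tumor 1 and Myc tumor 1 together. Irf7, a transcription factor that amplifies type I interferon, had 140.1, 126, 260.4 and 238 CPM in Myc tumors 1 to 4, against 5.98, 3.15 and 4.82 CPM in SHH tumors 1 to 3. Irf7 had a log2 fold change of 5.36 ± 0.73 SE, edgeR adjusted p = 0.000143. Isg15, a ubiquitin-like modifier, had 78.7, 121, 189.7 and 79.5 CPM in Myc tumors 1 to 4, against 5.92, 4.75 and 4.47 CPM in SHH tumors 1 to 3. Isg15 differed by 4.54 ± 0.66 SE, edgeR adjusted p = 0.000214 on the log2 scale. Bst2, which tethers budding virus, had 241, 248, 479 and 232 CPM in Myc tumors 1 to 4, against 11.1, 8.32 and 12.2 CPM in SHH tumors 1 to 3. Bst2 had a log2 fold change of 4.83 ± 0.60 SE, edgeR adjusted p = 8.77e-05. The RNA sensors Ddx58 (RIG-I) and Dhx58, the ADP-ribosyltransferase Parp14 and the guanylate-binding protein Gbp2 followed at 3.41, 3.998, 3.87 and 4.51.

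Promoters of Isg15 and Ifit1, an interferon-induced RNA-binding protein (log2 fold change 5.17, and 6.05 without SHH tumor 1), are shown because they hold the interferon-stimulated response element core, spelled GAAA, any 2 bases and GAAA again. It was searched on both strands with overlapping matches allowed and is printed in capitals. The motif was chosen after the values were seen. Isg15 lies at chr4:156200769-156201068, minus strand, with 3 overlapping matches, and Ifit1 at chr19:34640639-34640938, plus strand, with 2 matches, both of them on the opposite strand. Both promoters are 300 bases of RefSeq on GRCm38.p6 in the direction of the gene.
Isg15: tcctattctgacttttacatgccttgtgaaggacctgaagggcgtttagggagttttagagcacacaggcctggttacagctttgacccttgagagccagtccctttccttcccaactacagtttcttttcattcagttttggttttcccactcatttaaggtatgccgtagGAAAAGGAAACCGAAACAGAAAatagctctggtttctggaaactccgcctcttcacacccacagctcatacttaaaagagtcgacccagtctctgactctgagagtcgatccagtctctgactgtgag
Ifit1: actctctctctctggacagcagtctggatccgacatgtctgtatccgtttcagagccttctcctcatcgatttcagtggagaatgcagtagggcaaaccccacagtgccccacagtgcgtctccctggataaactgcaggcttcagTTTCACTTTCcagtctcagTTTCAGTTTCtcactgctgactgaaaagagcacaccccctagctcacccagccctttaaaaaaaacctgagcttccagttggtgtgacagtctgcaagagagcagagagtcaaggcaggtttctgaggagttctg
These letters stood in 3.99% of all 27025 promoters, in 6.58% of promoters of genes higher in Myc tumors, 3.14% of those lower and 3.18% of those not called. They stood in 12 of 20 interferon promoters and in 2 of 12 of the MHC class I list. The Gli motif GACCACCCA, searched on both strands, stood in 0.289% of all promoters and in none of 15 of the Hedgehog list.

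Genes that present antigen on MHC class I were higher in 13 of 14, with a median of 2.70, and the count was 13 without any single library and without SHH tumor 1 and Myc tumor 1 together. B2m, the invariant light chain, had 997, 983, 1072 and 779 CPM in Myc tumors 1 to 4, against 147, 133 and 169 CPM in SHH tumors 1 to 3. B2m had a log2 fold change of 2.68 ± 0.40 SE, edgeR adjusted p = 0.000236. Psmb8, a subunit of the immunoproteasome, had 63.3, 73.9, 77.2 and 50.9 CPM in Myc tumors 1 to 4, against 5.10, 4.51 and 5.66 CPM in SHH tumors 1 to 3. Psmb8 differed by 3.70 ± 0.31 SE, edgeR adjusted p = 8.45e-06 on the log2 scale. Tap1, the peptide transporter, had 69.6, 83.0, 100.6 and 61.6 CPM in Myc tumors 1 to 4, against 8.603, 8.86 and 6.997 CPM in SHH tumors 1 to 3. Tap1 had a log2 fold change of 3.27 ± 0.33 SE, edgeR adjusted p = 2.33e-05. Nlrc5, the transactivator of the class I genes, ranged over 16.5 to 56.6 CPM in Myc tumors and 3.73 to 6.15 CPM in SHH tumors (2.85). H2-K1, a class I heavy chain whose reads may be shared with its close relatives, ranged over 412 to 586 CPM in Myc tumors and 63.2 to 75.7 CPM in SHH tumors (2.86). Brain averaged 30.7 CPM of B2m, 1.25 CPM of Psmb8 and 6.74 CPM of Tap1.

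Class II genes, which antigen-presenting cells express, were higher in 5 of 8 with all libraries, in 3 without Myc tumor 1 or 4 or SHH tumor 1 or 2, in 8 without Myc tumor 3 or SHH tumor 3, and in none without SHH tumor 1 and Myc tumor 1 together. Cd74, the invariant chain, had 753, 456, 42.4 and 610.0 CPM in Myc tumors 1 to 4, against 7.44, 5.64 and 157 CPM in SHH tumors 1 to 3, low in Myc tumor 3 and high in SHH tumor 3. It was not called (edgeR adjusted p = 0.0557), and it passed without Myc tumor 3 or SHH tumor 3 (edgeR adjusted p = 0.00270 to 0.0310), with log2 fold changes of 3.37 without Myc tumor 3 and 6.15 without SHH tumor 3. Cd74 also passed with DESeq2 (adjusted p = 0.00940) and with limma (adjusted p = 0.0125). Ciita, the class II transactivator, had 7.16, 0.574, 1.28 and 15.2 CPM in Myc tumors 1 to 4, against 0.258, 0.893 and 2.46 CPM in SHH tumors 1 to 3 (edgeR adjusted p = 0.0701) and passed without Myc tumors 2 or 3 or SHH tumor 3 (edgeR adjusted p = 0.0292 to 0.0439) and with DESeq2 (adjusted p = 0.0258). Checkpoint genes, which restrain T cells, were higher in 8 of 12 and lower in none, with 5 higher without Myc tumor 1, 3 without SHH tumor 1, 4 without SHH tumor 2 or 3 and 2 without SHH tumor 1 and Myc tumor 1 together. Cd274, PD-L1, had 20.3, 116, 27.6 and 25.0 CPM in Myc tumors 1 to 4, against 4.48, 2.42 and 3.20 CPM in SHH tumors 1 to 3. Cd274 changed by 3.81 ± 0.68 SE, edgeR adjusted p = 0.000838 on the log2 scale, and by 2.83 without Myc tumor 2. Pdcd1, PD-1, ranged over 0.0521 to 4.10 CPM in Myc tumors and 0.188 to 0.412 CPM in SHH tumors (edgeR adjusted p = 0.0558). Pdcd1 passed without Myc tumor 2 (edgeR adjusted p = 0.0156) and with DESeq2 (adjusted p = 0.0123). Chemokines were higher in 9 of 16 and lower in 1, with 5 higher without SHH tumor 2, 2 lower without Myc tumor 1 and none lower without SHH tumor 1 and Myc tumor 1 together. Cxcl16, a chemokine and scavenger receptor, had 224, 268, 67.1 and 155 CPM in Myc tumors 1 to 4, against 4.38, 6.04 and 10.3 CPM in SHH tumors 1 to 3. Cxcl16 differed by 4.68 ± 0.69 SE, edgeR adjusted p = 0.000225 on the log2 scale. The monocyte chemokine Ccl2 ranged over 8.604 to 325 CPM in Myc tumors and 0.635 to 0.996 CPM in SHH tumors (7.19, and 6.07 without Myc tumor 4). Cx3cl1, fractalkine of neurons, was the member that was lower, at 6.76 to 34.3 CPM in Myc tumors and 96.6 to 278 CPM in SHH tumors (-3.22), and lost its call without SHH tumor 1 and Myc tumor 1 together (adjusted p = 0.0894). Csf1, the growth factor of macrophages, was called at 2.55, stood at 1.63 without Myc tumor 1, and lost its call without Myc tumor 1 or SHH tumors 1, 2 or 3 (edgeR adjusted p = 0.0588 to 0.0844).

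Macrophage and monocyte markers were higher beside these genes, and their part in the interferon and antigen presentation values was not tested. The summed level of 21 macrophage and monocyte markers was 7632, 3364, 2649.9 and 2326 CPM in Myc tumors 1 to 4, against 546, 579 and 709.6 CPM in SHH tumors 1 to 3, and 125 to 189.7 CPM in brain. Of the 21, 20 were called higher, and 13 without SHH tumor 1 and Myc tumor 1 together. Ptprc, CD45 of all white blood cells, had 157, 65.5, 69.3 and 85.5 CPM in Myc tumors 1 to 4, against 9.87, 8.39 and 18.3 CPM in SHH tumors 1 to 3. Ptprc had a log2 fold change of 2.95 ± 0.45 SE, edgeR adjusted p = 0.000307. C1qa, a complement subunit of macrophages, had 769.5, 409, 275 and 252 CPM in Myc tumors 1 to 4, against 72.2, 84.5 and 71.9 CPM in SHH tumors 1 to 3. C1qa differed by 2.48 ± 0.65 SE, edgeR adjusted p = 0.00780 on the log2 scale. C1qa lost its call without SHH tumor 1 and Myc tumor 1 together (adjusted p = 0.0652). Mrc1, the mannose receptor, ranged over 58.3 to 300.2 CPM in Myc tumors and 2.04 to 5.64 CPM in SHH tumors (5.42). Csf1r, the receptor of Csf1, was higher by 1.69, stood at 1.09 without Myc tumor 1, and lost its call without Myc tumor 1 or SHH tumors 2 or 3 (edgeR adjusted p = 0.0525 to 0.0637). Of 10 markers of brain-resident microglia, 1 was higher and 3 lower, with a median of 0.11. Their summed level was 1153, 519, 1016 and 1021 CPM in Myc tumors 1 to 4, against 422, 362 and 367 CPM in SHH tumors 1 to 3. The marker Olfml3 held the largest part of that sum in every Myc tumor. It had 521, 321, 765 and 666 CPM in Myc tumors 1 to 4, against 51.4, 98.0 and 147 CPM in SHH tumors 1 to 3. P2ry12, a purine receptor of microglia, had 32.1, 12.4, 15.4 and 7.73 CPM in Myc tumors 1 to 4, against 27.7, 14.2 and 9.40 CPM in SHH tumors 1 to 3 (edgeR adjusted p = 0.986). Tmem119, a microglial membrane protein, ranged over 13.6 to 119 CPM in Myc tumors and 14.01 to 20.8 CPM in SHH tumors (edgeR adjusted p = 0.260).

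Many T and NK cell and neutrophil transcripts were higher in Myc tumors, at low levels in both groups. The 20 T and NK cell markers summed to 46.0, 13.2, 88.8 and 28.3 CPM in Myc tumors 1 to 4, against 2.40, 5.48 and 6.14 CPM in SHH tumors 1 to 3, and 13 were called, or 8 without SHH tumor 1 or without SHH tumor 1 and Myc tumor 1 together. Gzmb, granzyme B, had 3.94, 0.313, 17.2 and 0.658 CPM in Myc tumors 1 to 4, against 0, 0.0235 and 0.0113 CPM in SHH tumors 1 to 3. Gzmb changed by 8.66 ± 1.59 SE, edgeR adjusted p = 0.000954 on the log2 scale, and by 6.81 without Myc tumor 3. The T cell receptor subunit Cd3e ranged over 0.0521 to 2.75 CPM in Myc tumors and 0 to 0.487 CPM in SHH tumors and did not pass (edgeR adjusted p = 0.122), and it passed without SHH tumor 3 (edgeR adjusted p = 0.0205) and with limma (adjusted p = 0.0257). The coreceptor Cd8a ranged over 0.104 to 1.75 CPM in Myc tumors and 0.0235 to 0.249 CPM in SHH tumors (edgeR adjusted p = 0.105) and passed with DESeq2 (adjusted p = 0.0392). Ifng, interferon gamma, was called on 10 counts in all Myc tumors and none in SHH tumors, at least 2.15-fold higher on the floor of 3 counts over the summed SHH libraries. Ifng lost its call with the replicate block (adjusted p = 0.0591). The 7 neutrophil markers summed to 34.9, 96.8, 75.7 and 42.8 CPM in Myc tumors 1 to 4, against 15.6, 8.203 and 10.4 CPM in SHH tumors 1 to 3, and 6 were higher. S100a9, a calgranulin of neutrophils, had 4.43, 30.6, 15.8 and 7.02 CPM in Myc tumors 1 to 4, against 0, 0.165 and 0.396 CPM in SHH tumors 1 to 3 (6.19, and 5.51 without Myc tumor 2 and 7.40 without SHH tumor 3). Of 14 endothelial markers, 3 were higher and 2 lower. The number higher was 1 without SHH tumor 1, 2 or 3, and the number lower was 1 without Myc tumor 1 or 2 or SHH tumor 3 and 0 without SHH tumor 1 or without SHH tumor 1 and Myc tumor 1 together. Pecam1, CD31, ranged over 19.2 to 55.1 CPM in Myc tumors and 12.04 to 23.1 CPM in SHH tumors (edgeR adjusted p = 0.168) and passed with limma (adjusted p = 0.0446). Cdh5, VE-cadherin, was called at 1.30 and lost its call without Myc tumors 1 or 4 or SHH tumors 1, 2 or 3 (edgeR adjusted p = 0.0629 to 0.131). Cldn5, of tight junctions, was called at 2.003, stood at 0.75 without Myc tumor 2, and lost its call without Myc tumor 2 or SHH tumors 1, 2 or 3 (edgeR adjusted p = 0.0675 to 0.229).

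**Figure D5:**
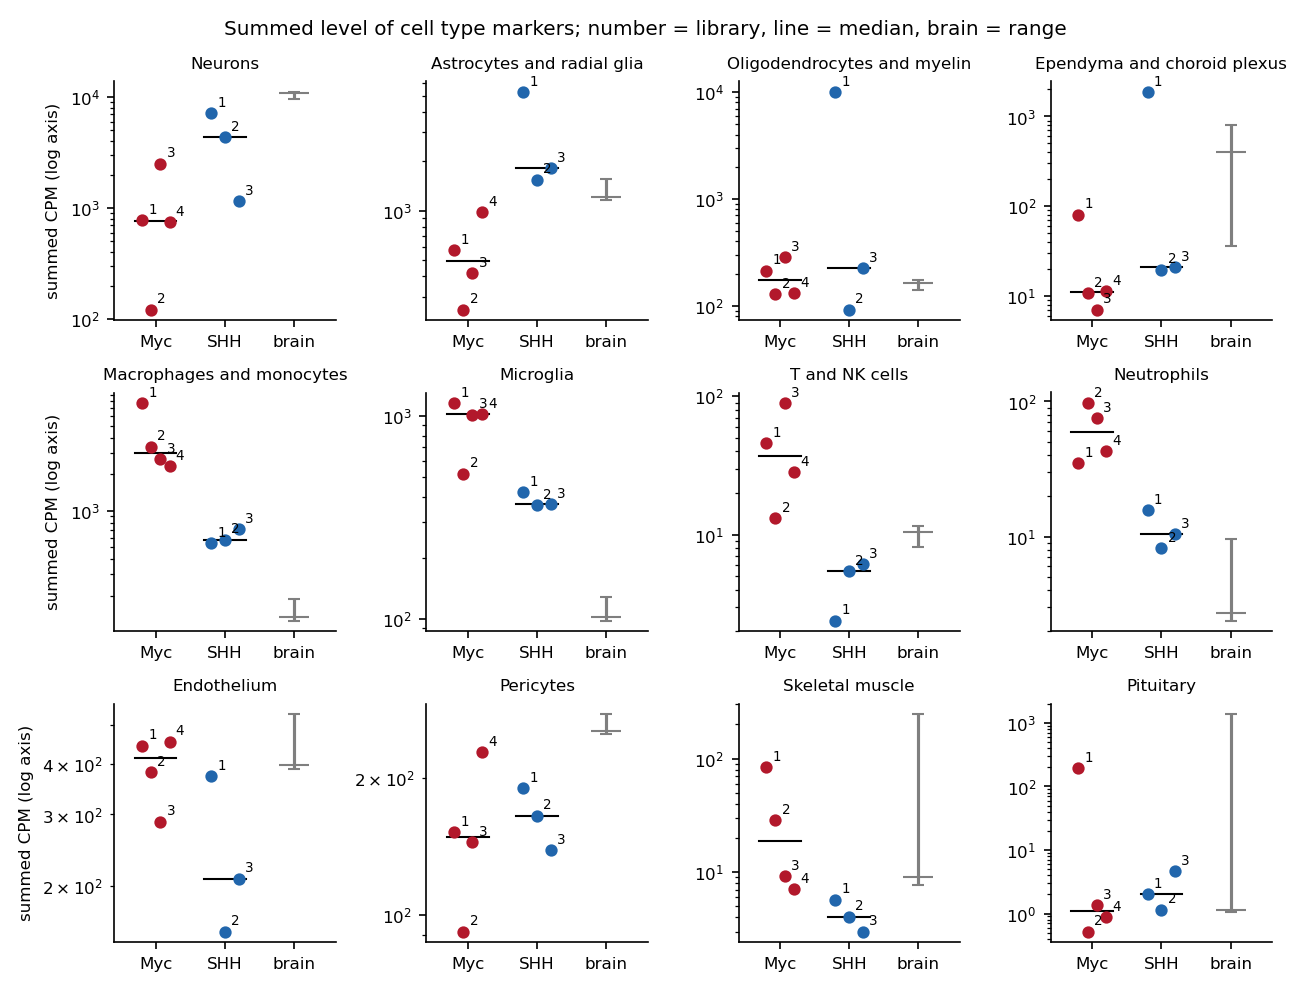
Each panel is a list of cell type markers, with the summed CPM of the list on a logarithmic vertical axis. Numbered points are libraries of Myc tumors (red) and SHH tumors (blue), horizontal lines are group medians, and the grey bar is the range of the 3 brain libraries. Macrophage, microglia, T and NK cell and neutrophil sums are higher in every Myc tumor than in any SHH tumor. The gene Olfml3 holds the largest part of the microglia sum in each Myc tumor. The oligodendrocyte and ependymal sums of SHH tumor 1 stand far above all other tumors.

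Calls among oligodendrocyte and astrocyte markers were lost without SHH tumor 1, and the myelin sum was high in that tumor alone. The 12 oligodendrocyte and myelin markers summed to 214, 128, 284 and 131 CPM in Myc tumors 1 to 4, against 9936, 92.1 and 225 CPM in SHH tumors 1 to 3, and 139.8 to 173 CPM in brain. The age of these brains is not stated, and Sox11, a factor of immature neurons, stood at 569 to 786 CPM in them. Their myelin sum may not be that of mature brain. Mbp, myelin basic protein, had 80.8, 87.3, 95.7 and 22.1 CPM in Myc tumors 1 to 4, against 4017, 28.0 and 65.1 CPM in SHH tumors 1 to 3, and its log2 fold change was -4.26 with all libraries and 0.61 without SHH tumor 1 (edgeR adjusted p = 0.678). Mbp lost its call without Myc tumors 1, 2 or 4 or SHH tumor 1 (edgeR adjusted p = 0.0524 to 0.678). Of the 12, 9 were called lower in Myc tumors, 5 without Myc tumor 1 or 4, none without SHH tumor 1 or without SHH tumor 1 and Myc tumor 1 together, and no marker separated the groups without overlap. Astrocyte markers were lower in 6 of 12, and in none without SHH tumor 1 or without SHH tumor 1 and Myc tumor 1 together. The astrocyte sum was still lower in every Myc tumor than in any SHH tumor. It was 577, 250, 418 and 979 CPM in Myc tumors 1 to 4, against 5248, 1545 and 1815 CPM in SHH tumors 1 to 3. In 5 of the 12 markers every Myc tumor was below every SHH tumor, against 23.1% of all genes. Gfap, the filament of astrocytes, ranged over 1.56 to 273 CPM in Myc tumors and 93.2 to 721 CPM in SHH tumors without passing (edgeR adjusted p = 0.191), and it passed without Myc tumor 4 (edgeR adjusted p = 0.0121). Aqp4, a water channel, ranged over 0.0521 to 67.1 CPM in Myc tumors and 2.82 to 262 CPM in SHH tumors (edgeR adjusted p = 0.249). Ependymal and choroid plexus markers were lower in 7 of 10, in 4 without Myc tumor 2, in 3 without Myc tumor 3 and in 1 without SHH tumor 1 or without SHH tumor 1 and Myc tumor 1 together. Pituitary hormones were highest in Myc tumor 1: Gh, growth hormone, had 71.4, 0.104, 0.532 and 0.105 CPM in Myc tumors 1 to 4, against 0, 0 and 1.08 CPM in SHH tumors 1 to 3. Prl, prolactin, had 56.1, 0.0521, 0.0698 and 0 CPM in Myc tumors 1 to 4, against 0, 0 and 2.49 CPM in SHH tumors 1 to 3. Skeletal muscle markers summed to 83.8, 28.7, 9.20 and 7.11 CPM in Myc tumors 1 to 4, against 5.74, 4.07 and 3.0002 CPM in SHH tumors 1 to 3, highest in Myc tumor 1. Acta1, skeletal actin, had 16.8, 26.7, 4.14 and 0.329 CPM in Myc tumors 1 to 4, against 1.21, 0.494 and 0.419 CPM in SHH tumors 1 to 3, and Ckm, muscle creatine kinase, ranged over 0.0149 to 5.30 CPM in Myc tumors and 0 to 0.0258 CPM in SHH tumors. Neither was called (edgeR adjusted p = 0.109 and 0.0810), but Acta1 passed with DESeq2 (adjusted p = 0.0188) and Ckm with DESeq2 (adjusted p = 0.00372). Hemoglobin, read as Hbb-bs, whose reads may be shared with its copy, ranged over 1.59 to 27.3 CPM in Myc tumors and 3.60 to 50.2 CPM in SHH tumors (edgeR adjusted p = 0.321), and of 7 erythroid genes 1 was lower, 3 without Myc tumor 4 and none without SHH tumor 3. Of 10 muscle genes 1 was higher, 2 without Myc tumor 3 and none without Myc tumor 1 or SHH tumor 1, 2 or 3 or without SHH tumor 1 and Myc tumor 1 together, and 1 was lower without Myc tumor 1 or without SHH tumor 1 and Myc tumor 1 together. Of 5 B cell genes 1 was higher and 1 lower, with none higher without SHH tumor 2.

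Some subunits of SWI/SNF differed between the groups. Of 29, Smarcb1 among them, 12 were lower and 2 higher, with a median of -0.51, and 1 was higher without Myc tumor 1, 2, 3 or 4 or SHH tumor 1 or 2 or without SHH tumor 1 and Myc tumor 1 together. Actl6b, the actin-like subunit of neurons, had 0.273, 0.0521, 0.218 and 0.404 CPM in Myc tumors 1 to 4, against 43.3, 50.2 and 11.2 CPM in SHH tumors 1 to 3. Actl6b had a log2 fold change of -7.12 ± 0.78 SE, edgeR adjusted p = 3.58e-05. Its counterpart in dividing cells, Actl6a, ranged over 46.9 to 61.8 CPM in Myc tumors and 24.2 to 60.5 CPM in SHH tumors (edgeR adjusted p = 0.535). Bcl11a, a subunit of neural and lymphoid cells, had 1.04, 0.156, 0.655 and 1.05 CPM in Myc tumors 1 to 4, against 17.95, 26.5 and 43.7 CPM in SHH tumors 1 to 3. Bcl11a differed by -5.32 ± 0.76 SE, edgeR adjusted p = 0.000188 on the log2 scale. Of the catalytic subunits, Smarca2 had 53.6, 25.5, 29.7 and 48.1 CPM in Myc tumors 1 to 4, against 196, 144 and 107 CPM in SHH tumors 1 to 3. Smarca2 had a log2 fold change of -1.92 ± 0.34 SE, edgeR adjusted p = 0.000792. Smarca4, the other catalytic subunit, had a log2 fold change of -0.70 and lost its call without Myc tumors 1 or 2 or SHH tumors 2 or 3 (edgeR adjusted p = 0.0561 to 0.116). Smarcc2, a scaffold, was lower at 122 to 188 CPM in Myc tumors and 299 to 343 CPM in SHH tumors (-1.02). Smarcd2, a subunit prominent in blood cells, was higher at 55.2 to 58.8 CPM in Myc tumors and 23.3 to 29.3 CPM in SHH tumors (1.09). Dpf1, a neural subunit, ranged over 2.97 to 7.33 CPM in Myc tumors and 5.80 to 23.2 CPM in SHH tumors (edgeR adjusted p = 0.135). Dpf1 passed with limma (adjusted p = 0.0338), in a fit of the 7 tumors alone (adjusted p = 0.0441) and with sex as a covariate (adjusted p = 0.0300).

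Of 10 genes of Polycomb complex PRC2, 2 were lower and 1 higher, no larger share than over all genes. The gene higher was Eed, a core subunit, at 46.0 to 74.0 CPM in Myc tumors and 23.98 to 40.6 CPM in SHH tumors (0.99). The number higher was 2 without Myc tumor 1 and 3 without Myc tumor 2, and the number lower 1 without SHH tumor 2. Ezh2, its methyltransferase, had 33.2, 7.72, 40.2 and 28.2 CPM in Myc tumors 1 to 4, against 33.2, 76.3 and 83.6 CPM in SHH tumors 1 to 3 and did not pass (edgeR adjusted p = 0.0548), while it passed without Myc tumor 3 or SHH tumor 1 (edgeR adjusted p = 0.0333 to 0.0365). Ezh2 also passed with RLE size factors (adjusted p = 0.0420), with a minimum count of 50 (adjusted p = 0.0480), with DESeq2 (adjusted p = 0.0240), with limma (adjusted p = 0.0484) and without SHH tumor 1 and Myc tumor 1 together (adjusted p = 0.0458). Of 13 genes of DNA methylation and retroelement silencing, 5 were lower and 3 higher, and 3 were lower without SHH tumor 2 or 3 and 1 higher without SHH tumor 1 and Myc tumor 1 together. Tet1, a methylcytosine dioxygenase, had 3.12, 3.29, 1.53 and 1.24 CPM in Myc tumors 1 to 4, against 43.4, 75.9 and 130.2 CPM in SHH tumors 1 to 3. Tet1 had a log2 fold change of -5.196 ± 0.77 SE, edgeR adjusted p = 0.000252. Dnmt3a, a de novo methyltransferase, ranged over 24.7 to 53.2 CPM in Myc tumors and 124 to 229.9 CPM in SHH tumors (-2.22). Of 8 germline genes, 4 were lower and 2 higher, with 1 higher without Myc tumor 2 or SHH tumor 1 or 3, 1 lower without Myc tumor 3 or 4, and none higher and 2 lower without SHH tumor 1 and Myc tumor 1 together. Protocadherin beta genes, near-identical neighbours whose reads may be split, were lower in 8 of 21 and in 5 without SHH tumor 3, with Pcdhb8 at 0.261 to 0.875 CPM in Myc tumors and 6.13 to 8.27 CPM in SHH tumors (-3.65). Of 24 genes of Wnt, BMP and TGF-beta signaling, 5 were higher and 6 lower, near the shares over all genes, or 2 and 2 without SHH tumor 1 and Myc tumor 1 together. The number higher was 3 without Myc tumor 1 or 4 and 2 without SHH tumor 1 or 2, and the number lower was 3 without SHH tumor 1. Tgfb1, a cytokine of immune and mesenchymal cells, had 82.9, 47.9, 72.0 and 75.5 CPM in Myc tumors 1 to 4, against 8.65, 8.89 and 9.76 CPM in SHH tumors 1 to 3. Tgfb1 differed by 2.93 ± 0.49 SE, edgeR adjusted p = 0.000505 on the log2 scale. Tgfb2, its relative of neural tissue, ranged over 0.991 to 4.11 CPM in Myc tumors and 12.8 to 47.1 CPM in SHH tumors (-3.28, and -2.59 without SHH tumor 1) and lost its call without SHH tumor 1 and Myc tumor 1 together (adjusted p = 0.0778). Of 4 melanocytic genes of the TYR subgroup, Mitf, a factor of pigment and other cells, ranged over 3.02 to 11.0 CPM in Myc tumors and 2.56 to 13.96 CPM in SHH tumors without passing (edgeR adjusted p = 0.746). The 1 called was Tyrp1, a pigment enzyme: it had 0, 0, 0 and 0 CPM in Myc tumors 1 to 4, against 1.24, 0.0235 and 0.0340 CPM in SHH tumors 1 to 3, and lost its call without Myc tumors 3 or 4 or SHH tumor 1 (edgeR adjusted p = 0.0557 to 0.182).

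Host genes of microRNAs, chosen by symbol after values were seen, were also read. MicroRNAs are short RNAs that pair through their seed (bases 2 to 8) with messenger RNAs and repress them. The libraries hold polyadenylated host transcripts, and the mature microRNAs were not measured. Of 9 host genes tested, 4 were lower, 2 higher and 3 not called in Myc tumors. Mir124a-1hg, which holds the neuronal miR-124, had 0.656, 0, 0.794 and 1.12 CPM in Myc tumors 1 to 4, against 253, 286 and 270.1 CPM in SHH tumors 1 to 3. Mir124a-1hg had a log2 fold change of -8.63 ± 1.29 SE, edgeR adjusted p = 0.000260. Mir22hg, host of miR-22, a microRNA of muscle and many tumors, had 116, 47.6, 97.5 and 68.3 CPM in Myc tumors 1 to 4, against 16.3, 8.27 and 5.94 CPM in SHH tumors 1 to 3. Mir22hg differed by 3.02 ± 0.42 SE, edgeR adjusted p = 0.000174 on the log2 scale. Mir142hg, host of the white blood cell microRNA miR-142, ranged over 1.09 to 4.43 CPM in Myc tumors and 0.412 to 0.494 CPM in SHH tumors (2.42). Mir9-3hg, host of the neural miR-9, ranged over 0.0521 to 1.09 CPM in Myc tumors and 1.25 to 19.6 CPM in SHH tumors, where the log2 fold change of -3.80 became -1.60 without SHH tumor 1 (edgeR adjusted p = 0.225) and -4.39 without Myc tumor 4. The mature sequences of 3 of these microRNAs, from RefSeq on GRCm38.p6 and read 5′ to 3′ with the seed in capitals, lie at chr7:79505279-79505301, plus strand, chr11:75463772-75463793, plus strand and chr11:87756903-87756925, plus strand.
mmu-miR-9-5p: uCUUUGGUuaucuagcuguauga
mmu-miR-22-3p: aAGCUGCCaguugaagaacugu
mmu-miR-142a-3p: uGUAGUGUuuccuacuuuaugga
The 3 seeds differ from one another, so these microRNAs fall into 3 seed groups.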

How the data were processed

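Polyadenylated RNA of whole tissue was extracted with the miRNeasy kit and made into libraries with TruSeq Stranded mRNA, per the labels' protocols. The authors deposited raw counts per Ensembl gene for each library, and STAR 2.5.3a and the build mm10 are named in the submitters' processing notes. The counting tool and its strand setting are not given in the sources used here. Of 50600 gene IDs, 45737 matched the annotation table with their version and 50376 without it. Genes that passed filterByExpr (minimum count 10) held 99.96% of the counts of all 17 libraries. Counts of all 17 libraries were scaled by TMM and fitted with edgeR 4.0.16 in R 4.3.3 (robust quasi-likelihood, 1 mean per group), so all groups shared an estimate of the spread. The contrast was 4 Myc against 3 SHH tumors, with Benjamini-Hochberg adjustment over all genes tested and a threshold of 0.05. CPM use TMM-scaled library sizes, and a floor of 3 counts over the summed libraries of a group bounds the folds of genes absent there, which covers counting error only.

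Genes named were, first, called genes whose groups did not overlap, with a mean of 10 CPM or more in the higher group and an ordinary symbol: the 12 of greatest increase and the 12 of greatest decrease. Further names were key genes of each list and some of up to 6 further members of each list with the smallest adjusted p. H2-K1, Ifit1, Isg15, Cdkn1b, Cdkn2b, Cdkn2c, Cdkn2d, Mitf and the microRNA hosts were named after values were seen, and some list members are counted but not reported here by name. The comparison and the lists were chosen with earlier results of these data known. Alternatives were DESeq2 1.42.0 (median-of-ratios factors and Wald test), limma 3.58.1 with quality weights, other filters, a replicate block, sex as a covariate, fewer groups or libraries, and each library left out. The fit was also run on simulated counts, with the outcome not reported here. Numbers in the titles were not used to pair Myc and SHH tumors in the main fit. Deviations from the group means correlated at 0.009, 0.083 and -0.051 for equal numbers, and at -0.113 to 0.097 for unequal numbers. These few pairs gave no support for a pairing and cannot exclude it. Promoters and microRNAs came from RefSeq on GRCm38.p6, which has the coordinates of mm10. Tables were handled with pandas 2.3.3 in Python 3.11.15.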

Additional observations from a re-analysis of the deposited data

Results flagged for a closer look

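Among the 206 genes named, 12 had a Myc tumor far from the other 3 on the log2(CPM + 1) scale, by a gap test that flags about 1 in 20 groups by chance. Myc tumor 1 stood above the others in the pituitary hormones Gh (71.4 CPM) and Prl (56.1 CPM), in muscle creatine kinase Ckm (5.30 CPM) and, at a level near 0, in Nhlh2 (0.0547 CPM). Myc tumor 2 stood above the others in Cnpy1 (1.67 CPM) and below them in Tubb3 (0.678 CPM) and Mitf (3.02 CPM). Myc tumor 3 stood above the others in the interferon gene Bst2 (479 CPM), in Hoxa13 (32.8 CPM) and, near 0, in Nkx2-3 (0.0611 CPM). Myc tumor 4 was lowest in Mbp (22.1 CPM) and, near 0, highest in Gsx1 (0.0299 CPM). Groups of 3 SHH tumors are too small for that test.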

How the results depend on the processing

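Genes higher in Myc tumors numbered 4087 and genes lower 4702. With only the libraries whose file numbers begin with 29, they numbered 2047 and 2619, a set with 2 tumors per group. Without SHH tumor 1 and Myc tumor 1 together, 2721 were higher and 171 of the list members were higher, against 262 with all libraries. Leaving out each library in turn gave 2923 to 3712 higher and 3823 to 4402 lower, and 197 to 245 list members higher and 131 to 160 lower. RLE size factors, the other filters, DESeq2, limma and sex as a covariate gave counts within 1.5 times. With median-of-ratios factors the split was 3794 higher and 4973 lower. Fitting the 7 tumors alone gave 2988 higher and 3282 lower. The replicate block gave 3732 higher and 4003 lower, and no correlation supported a pairing by number. The Smarcb1 difference turned to 1.36 on the log2 scale with limma (adjusted p = 0.0459), with the cause not tested, and ran from -0.92 to 1.25 with 1 library left out. Mbp turned to 0.15 with limma, 0.55 without SHH tumor 1 and Myc tumor 1, and 0.61 without SHH tumor 1, and Hoxa13 to -0.12 without Myc tumor 3. With 1 library left out, Mbp ran from -4.84 to 0.61 and Hoxa13 from -0.12 to 8.19. Of 164 genes named and called, 134 were called without each library and 112 under every alternative run. Among the genes named, the calls lost with the file numbers that begin with 29 were Ang2, Ankrd1, C1qa, Ccnd1, Ccnd3, Cdh2, Cdh5, Cdkn1b, Cldn5, Csf1, Csf1r, Cx3cl1, Dlk1, Dnmt3a, Epyc, Evc2, Fabp7, Fbl, Gli1, Gzmg, Hmga2, Hoxa13, Hoxd10, Lin28a, Lin28b, Magel2, Max, Mbp, Ndn, Olig2, Pdgfra, Psg22, S100a9, Serpinb9b, Sez6, Shh, Smarca4, Tbx15, Tgfb2, Trp53, Ttr, Twist1 and Tyrp1 (adjusted p = 0.0504 to 0.514). A fit of the 7 tumors alone lost Ccnd1, Cdkn1b, Cldn5, Csf1, Hhip, Hoxd10, Lin28b, Max, Mbp, Mir9-3hg, Prrx1, Psg22, Smarca4 and Trp53 (adjusted p = 0.0524 to 0.127). The replicate block lost Ccnd1, Cdkn1b, Cldn5, Gli2, Hoxa13, Hoxd10, Ifng, Mbp, Pdgfra, Prrx1, Psg22, Ttr and Twist1 (adjusted p = 0.0508 to 0.251). Leaving out SHH tumor 1 and Myc tumor 1 together lost Ang2, Ankrd1, C1qa, Cad, Ccnd1, Cdh2, Cdh5, Csf1, Cx3cl1, Fbl, Gzmg, Hey2, Hhip, Hmga2, Hoxa13, Hoxd10, Igf2bp2, Lin28b, Mbp, Mir9-3hg, Olig2, Pdgfra, Prrx1, Serpinb9b, Snai1, Tgfb2, Trp53, Ttr, Twist1 and Tyrp1 (adjusted p = 0.0512 to 0.742). The filter that kept every gene with a count lost Ccnd1, Cdh2, Cdh5, Cldn5, Hoxa13, Prrx1, Trp53 and Twist1 (adjusted p = 0.0501 to 0.0746). Sex as a covariate lost Cdh2, Gzmg, Hoxa13, Hoxd10, Mbp, Prrx1, Trp53 and Twist1 (adjusted p = 0.0525 to 0.146). Calls lost with limma were Csf1, Hey2, Hoxa13, Mbp, Mir9-3hg, Ttr and Tyrp1 (adjusted p = 0.0554 to 0.923), and RLE size factors lost Ccnd1 and Cdh5 (adjusted p = 0.0501 to 0.0551).

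With 4 against 3 tumors, differences within the spread between tumors were not detectable. Genes at a few counts per library are limited by depth, most in Myc tumors 1 and 2, where 1 count was worth the most CPM. The labels gave no sex, litter, age or dissection, and the subtype label cannot be told apart from anything that went with it.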

Other observations

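Genes of the X chromosome leaned to lower values in Myc tumors: of 746 tested, 28.6% were lower and 14.6% higher, with a median log2 fold change of -0.26. Medians of the autosomes lay between -0.13 on chromosome 2 and 0.20 on chromosome 19. With sex, read from Y transcripts, as a covariate, 25.2% of X genes were lower and 12.2% higher, with a median of -0.28.

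Each Myc tumor held 15 to 32 genes at 10 CPM or more that were under 1 CPM in the other 3 Myc tumors. Among SHH tumors, such genes numbered 32 in SHH tumor 1, 2 in SHH tumor 2 and 4 in SHH tumor 3.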
